A study of Mus musculus with 6 samples.

Results

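CD24+CD172a+ type 2 conventional dendritic cells (cDC2) were compared with CD24+ type 1 conventional dendritic cells (cDC1), both sorted from mouse spleen. The comparison takes 4 of the 6 arrays of the study, chosen by the population in the sample titles: 2 arrays of CD24+CD172a+ cDC2 and 2 of cDC1. The other 2 arrays hold CD24-CD172a+ cDC2, which carry CD172a but not CD24. They enter below only where the 2 kinds of cDC2 are set against each other. All mice were wild type (WT). The labels give no strain, age, sex or treatment, and they do not say whether mice were pooled or whether the 2 arrays of a population came from separate animals. The p-values therefore measure only the spread between these arrays, which may be technical. Both populations carry CD24 on their surface, so the question the pair addresses is which gene programs separate cDC2 from cDC1 when that marker is shared.

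Conventional dendritic cells take up antigen, process it and show it to T cells. In spleen, cDC1 are known for capturing material from dying cells and presenting it on MHC class I molecules to CD8 T cells, and they depend on the transcription factors IRF8 and BATF3. Splenic cDC2 carry CD172a, the product of Sirpa, depend in part on IRF4, and are known for presenting antigen on MHC class II molecules to CD4 T cells. These are general properties of the cell types and were not measured here.

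Every level below is the log2 of the deposited microarray intensity of 1 probe set, and every difference is the mean of the 2 CD24+CD172a+ arrays minus the mean of the 2 cDC1 arrays on that log2 scale, ± its standard error. A difference of 1 is a 2-fold change. A gene is called higher or lower where the p-value of limma, adjusted over all 19938 genes, is under 0.05. Arrays are numbered 1 and 2 within a population as in their titles. Levels of different genes come from different probe sets and are not compared with each other. In each called gene named below, the arrays of the 2 populations did not overlap, which by itself is common: it held for 52.0% of all genes. It was also a condition of naming for the largest differences each way and for the leading members of each list. For those genes it adds no evidence. Each call named below held when any 1 of the 4 compared arrays was left out, unless its paragraph gives the exception. Differences are of RNA per sorted population, so fewer cells of a type and less RNA per cell cannot be told apart.

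The surface markers used for the sort were read first. Sirpa, which encodes CD172a, stood at 4.97 and 5.39 in the cDC1 arrays and 10.01 and 10.27 in the CD24+CD172a+ arrays. Cd24a, which encodes CD24, stood at 11.83 and 11.66 in the cDC1 arrays and 10.94 and 10.82 in the CD24+CD172a+ arrays, and at 8.68 and 8.97 in the CD24-CD172a+ arrays. The Sirpa levels of the 2 populations thus lay far apart, while Cd24a was high in both. Even so, Cd24a was lower in CD24+CD172a+ cDC2, with a difference of -0.87 ± 0.15 (adjusted p = 0.00213). Both genes encode proteins the sort selected on, so these values check the labels and are no finding. Median intensity per array ran from 29.5 to 30.6 on the linear scale over all 6 arrays, replicate arrays correlated at 0.993 in each of the 2 populations, and arrays across the pair at 0.962 to 0.963, over genes, which are not independent replicates.

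The pair differed in 2718 genes, 13.6% of those tested. Of these, 1418 (7.11%) were higher in CD24+CD172a+ cDC2 and 1300 (6.52%) were lower. Called genes were more frequent among those with brighter probe sets: of the 9969 genes at or above the median level, 12.5% were called higher and 11.4% lower. These shares are the background against which the counts for gene groups below are read. The median difference of all genes was -0.03 and the median size of a difference, sign aside, was 0.16. The called changes were balanced at each size: 477 genes were higher and 450 lower by at least 2-fold, 136 and 114 by at least 4-fold, 41 and 40 by at least 8-fold, and 16 and 18 by at least 16-fold. At 32-fold or more, 5 genes were higher and 6 lower.

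With 1 array left out, fewer genes passed. Higher calls numbered 951 without cDC1 array 1, 965 without cDC1 array 2, 970 without CD24+CD172a+ array 1 and 908 without CD24+CD172a+ array 2, and the lower count 854, 948, 811 and 902 in the same order. Of the 2718 calls, between 62.2% and 67.0% were kept in these fits, and 0 were called in the other direction.

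**Figure D1:**
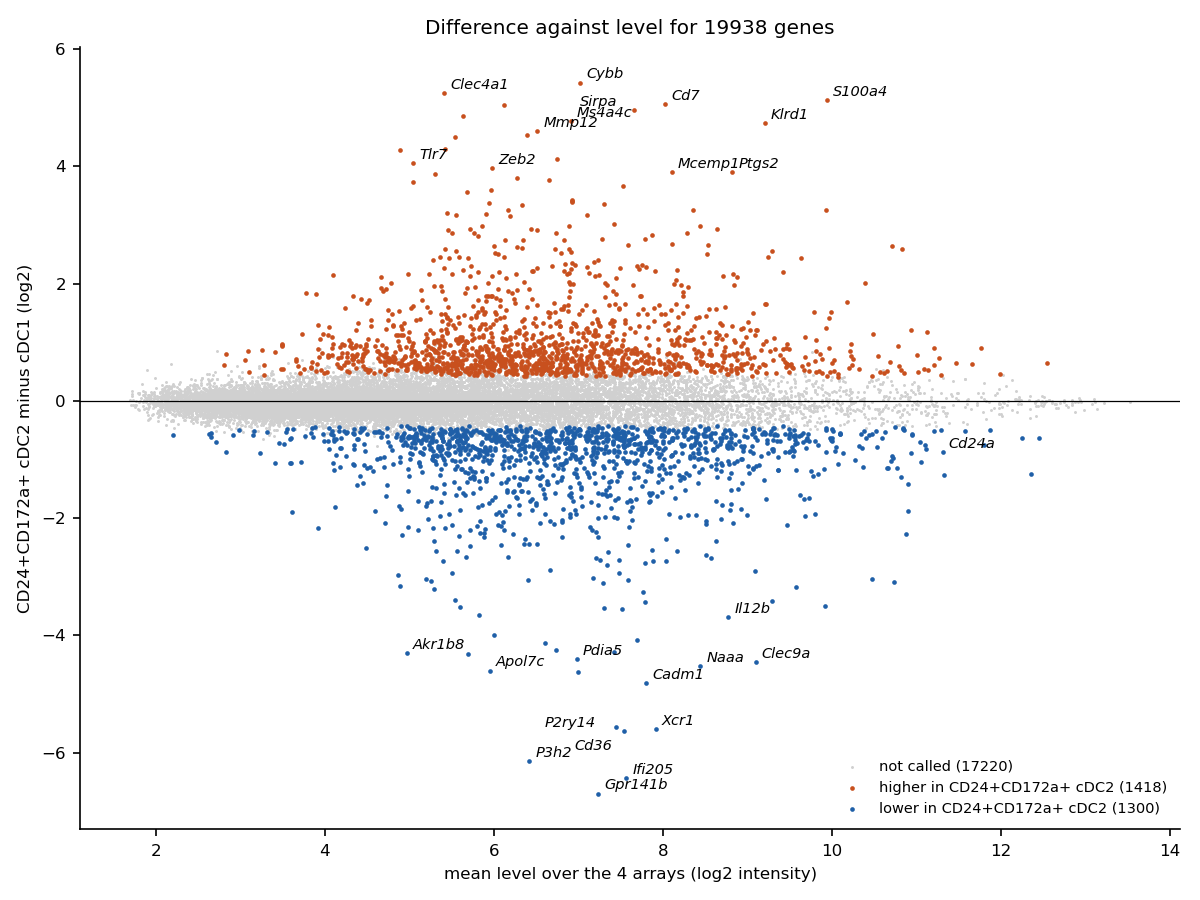
Difference between CD24+CD172a+ cDC2 and cDC1 (vertical axis, log2) against the mean level over the 4 arrays (horizontal axis, log2 intensity), 1 point per gene for 19938 genes. Genes called higher (1418) are orange and genes called lower (1300) blue. The largest differences lie at middle levels, and most of the brightest genes lie near 0.

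Among the largest differences, Cybb, the catalytic subunit of the phagocyte NADPH oxidase, stood at 4.27 and 4.34 in the cDC1 arrays and 9.53 and 9.93 in the CD24+CD172a+ arrays. The CD24+CD172a+ arrays lay above both cDC1 arrays by 5.43 ± 0.15 (43.1-fold, adjusted p = 1.03e-08). Clec4a1, a C-type lectin receptor of the DCIR family, stood at 2.71 and 2.87 in the cDC1 arrays and 8.01 and 8.07 in the CD24+CD172a+ arrays. That is a difference of 5.25 ± 0.13 (adjusted p = 5.55e-09). S100a4, a calcium-binding protein, stood at 7.37 and 7.39 in the cDC1 arrays and 12.58 and 12.44 in the CD24+CD172a+ arrays, with no overlap (5.13 ± 0.13, adjusted p = 5.1e-09). Cd7, an immunoglobulin-type receptor known from T and NK cells, stood at 5.39 and 5.6 in the cDC1 arrays and 10.4 and 10.71 in the CD24+CD172a+ arrays. It was higher in both CD24+CD172a+ arrays by 5.06 ± 0.15 (adjusted p = 1.29e-08). Clec4a4, the lectin DCIR2 that marks splenic cDC2, stood at 3.35 and 3.08 in the cDC1 arrays and 8.07 and 8.06 in the CD24+CD172a+ arrays (4.85 ± 0.16, adjusted p = 1.98e-08).

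On the other side, Gpr141b, an orphan G protein-coupled receptor, gave the largest difference in the comparison. It stood at 10.59 and 10.57 in the cDC1 arrays and 3.93 and 3.84 in the CD24+CD172a+ arrays, a 104-fold difference (-6.7 ± 0.25, adjusted p = 3.93e-08). Ifi205, a PYHIN-family interferon-inducible gene, stood at 10.77 and 10.79 in the cDC1 arrays and 4.43 and 4.28 in the CD24+CD172a+ arrays. Both CD24+CD172a+ arrays were lower, with a difference of -6.43 ± 0.15 (adjusted p = 4.59e-09). P3h2, an enzyme that hydroxylates proline in collagen, stood at 9.39 and 9.59 in the cDC1 arrays and 3.34 and 3.35 in the CD24+CD172a+ arrays. The populations were again far apart, with a difference of -6.14 ± 0.13 (adjusted p = 4.59e-09). Cd36, a scavenger receptor that binds lipids and dead cells, stood at 10.34 and 10.38 in the cDC1 arrays and 4.6 and 4.84 in the CD24+CD172a+ arrays (-5.64 ± 0.13, adjusted p = 4.59e-09). Xcr1, the receptor for the chemokine XCL1, stood at 10.71 and 10.71 in the cDC1 arrays and 4.79 and 5.45 in the CD24+CD172a+ arrays (-5.59 ± 0.21, adjusted p = 4.5e-08). For P2ry14, a receptor for UDP-sugars, the 2 cDC1 arrays read 10.22 and 10.21 and the CD24+CD172a+ arrays 4.71 and 4.62, a difference of -5.55 ± 0.17 (adjusted p = 1.61e-08).

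The rest of the 20 largest on each side ran from 3.8 (Ceacam1, an adhesion molecule) to 4.96 (Sirpa) for the higher genes, and from -3.65 (Clec4b2, a C-type lectin) to -4.81 (Cadm1, an adhesion molecule) for the lower ones. Among the higher genes were the macrophage elastase Mmp12 (4.6), the adhesion molecule Dscam (4.51), the signalling adaptor Sh2d1b1 (4.3), the single-stranded RNA sensor Tlr7 (4.05, and 2.64 with 16 added to the intensity before log2, which shrinks differences of dim genes), the transcription factor Zeb2 (3.97), the prostaglandin-forming enzyme Ptgs2 (3.91) and the membrane protein Mcemp1 (3.9). Pxdc1 was also among them (4.54), although its cDC1 arrays lay apart at 4.65 and 3.6. Among the lower genes were the amidase Naaa (-4.53), the disulfide isomerase family member Pdia5 (-4.41), the lipid phosphatase Plpp1 (-4.31), the aldo-keto reductase Akr1b8 (-4.29, and -2.75 with 16 added), the protease inhibitor Serpinb8 (-4.14) and the immunoglobulin-type proteins and adaptors Hepacam2 (-4.08) and Gcsam (-3.99). Apol7c, an apolipoprotein L family member, stood at 8.25 and 8.25 in the cDC1 arrays and 2.92 and 4.39 in the CD24+CD172a+ arrays, so its CD24+CD172a+ arrays lay apart from each other (-4.6 ± 0.35, adjusted p = 7.11e-06).

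Where the lower population lies below the 25th percentile of gene levels (3.931), background may set its value, since background was not examined. A difference is then read as a lower bound. Among named genes this holds for Clec4a1, Clec4a4, Clec4b1, Clec10a, Mgl2, Cd209d, Dscam, Sh2d1b1, Klra17, Tlr7, Adgre4, Rtp4 and Nlrc4, which were higher in CD24+CD172a+ cDC2, and for Gpr141b, P3h2, Apol7c, Plpp1, Akr1b8, Itga8, Clnk and Gpr33, which were lower. Several named genes belong to families of similar copies (Clec4a and Clec4b, Cd209, Klra and Klri, Ms4a, Ifi200, Lilr and Cd300, and H2 genes), and how far their probe sets also read a neighbour was not examined.

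**Figure D2:**
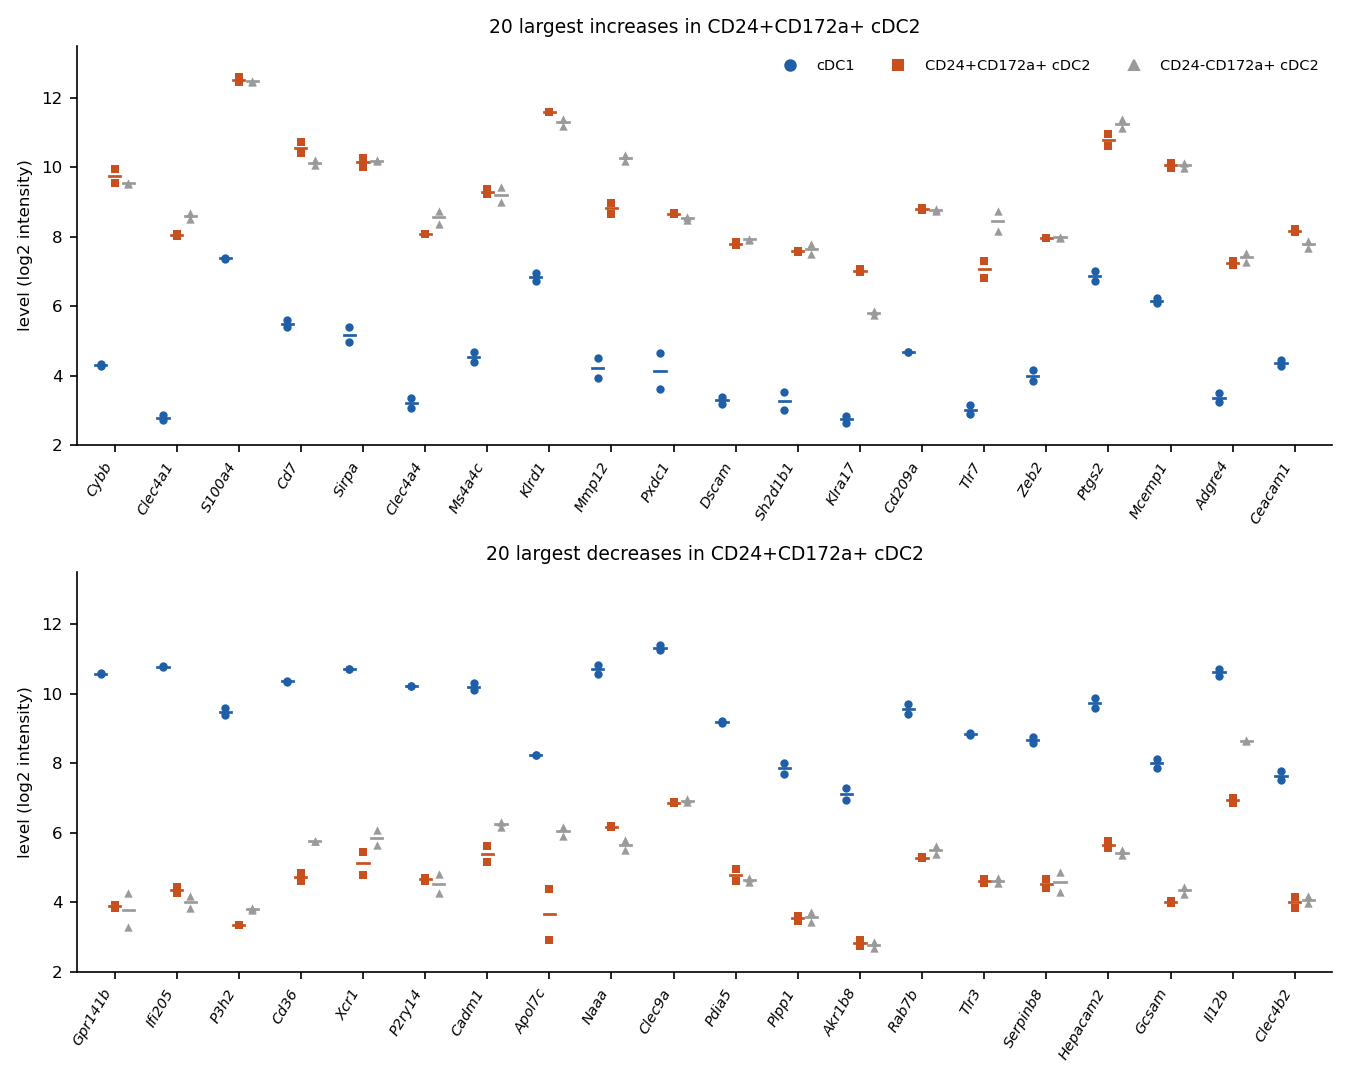
Level in each of the 6 arrays (log2 intensity) of the 20 genes with the largest positive and the 20 with the largest negative difference. Points are single arrays of each population, and short bars are means of 2. The cDC1 points stand apart from the CD24+CD172a+ points in each of the 40 genes, which was a condition for choosing them.

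The start regions of the genes at both ends of this ranking were read for 2 short elements that interferon regulatory factors (IRFs) bind, because Irf4 and Irf8 differ in opposite directions between these populations, as given below. The first, the tandem element, is GAAA, any 2 bases, and GAAA. The second, the composite element that IRF4 and IRF8 bind together with ETS factors such as PU.1, is GGAA, any 2 bases, and GAAA. They were searched on both strands over the 250 bases before the start, so 1 stretch can hold overlapping matches. Promoters were in the RefSeq-derived table (GRCm38.p6) for 15 of the 20 largest higher genes and 16 of the 20 largest lower ones, and 2 and 3 of these held a match. The 5 promoters with a match are shown 5′ to 3′ in the direction of the gene, with the matched letters in capitals (a match on the opposite strand appears as its reverse complement).
Cybb, chrX:9469325-9469574, minus strand: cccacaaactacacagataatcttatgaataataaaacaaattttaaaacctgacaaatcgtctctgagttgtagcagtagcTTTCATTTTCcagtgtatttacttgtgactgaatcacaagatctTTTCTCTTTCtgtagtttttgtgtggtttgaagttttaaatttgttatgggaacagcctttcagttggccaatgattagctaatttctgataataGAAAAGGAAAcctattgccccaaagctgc
Clec4a1, chr6:122921598-122921847, plus strand: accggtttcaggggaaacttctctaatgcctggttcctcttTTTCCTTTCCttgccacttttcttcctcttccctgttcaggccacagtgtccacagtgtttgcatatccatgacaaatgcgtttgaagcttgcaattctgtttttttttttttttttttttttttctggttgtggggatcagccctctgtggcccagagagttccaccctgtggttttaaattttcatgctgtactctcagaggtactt
Gpr141b, chr13:19732952-19733201, minus strand: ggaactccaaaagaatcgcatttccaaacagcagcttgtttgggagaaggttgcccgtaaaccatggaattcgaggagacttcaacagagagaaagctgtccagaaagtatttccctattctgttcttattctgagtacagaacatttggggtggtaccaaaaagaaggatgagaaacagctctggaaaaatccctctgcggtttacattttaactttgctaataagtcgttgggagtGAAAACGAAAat
Ifi205, chr1:174031756-174032005, minus strand: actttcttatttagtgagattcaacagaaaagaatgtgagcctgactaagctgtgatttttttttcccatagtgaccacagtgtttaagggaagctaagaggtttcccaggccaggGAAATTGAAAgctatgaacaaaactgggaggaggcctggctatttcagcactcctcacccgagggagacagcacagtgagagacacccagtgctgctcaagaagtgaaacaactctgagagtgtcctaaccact
Apol7c, chr15:77533316-77533565, minus strand: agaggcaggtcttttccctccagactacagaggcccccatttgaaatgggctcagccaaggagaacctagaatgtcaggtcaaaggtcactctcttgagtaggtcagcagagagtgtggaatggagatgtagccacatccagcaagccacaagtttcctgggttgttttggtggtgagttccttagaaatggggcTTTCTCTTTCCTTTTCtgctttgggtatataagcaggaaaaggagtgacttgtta
Cybb, higher in CD24+CD172a+ cDC2, held 3 matches of the tandem element, 168, 124 and 29 bases before the start. Clec4a1 held 1 match of the composite element, 209 bases before it. Of the genes lower in CD24+CD172a+ cDC2, Gpr141b and Ifi205 held 1 match each of the tandem element, 12 and 134 bases before the start, and Apol7c held 2 overlapping ones, 55 and 49 bases before it. Matches thus stood before genes of both directions. Either element was found in 5.09% of all 32851 promoters (the tandem one in 2.98% and the composite one in 2.3%), and in 4.84% of the 19115 promoters of genes tested (2.86% and 2.14%). The share was 5.92% of 1452 promoters of genes called higher (3.79% for the tandem element) and 5.02% of 1316 promoters of genes called lower (3.42%). These shares were not tested. For comparison, 13 of 29 promoters of the interferon-stimulated genes listed below held one (44.8%). A match is a run of letters and was not tested for binding.

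A total of 56 lists of genes, with 1133 of 1255 genes measured, were used to read the 2 populations by function. The lists were chosen with earlier results of these data known. Their counts and medians are therefore descriptions, to be read beside the 7.11% higher and 6.52% lower of all genes and the median of -0.03.

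**Figure D3:**
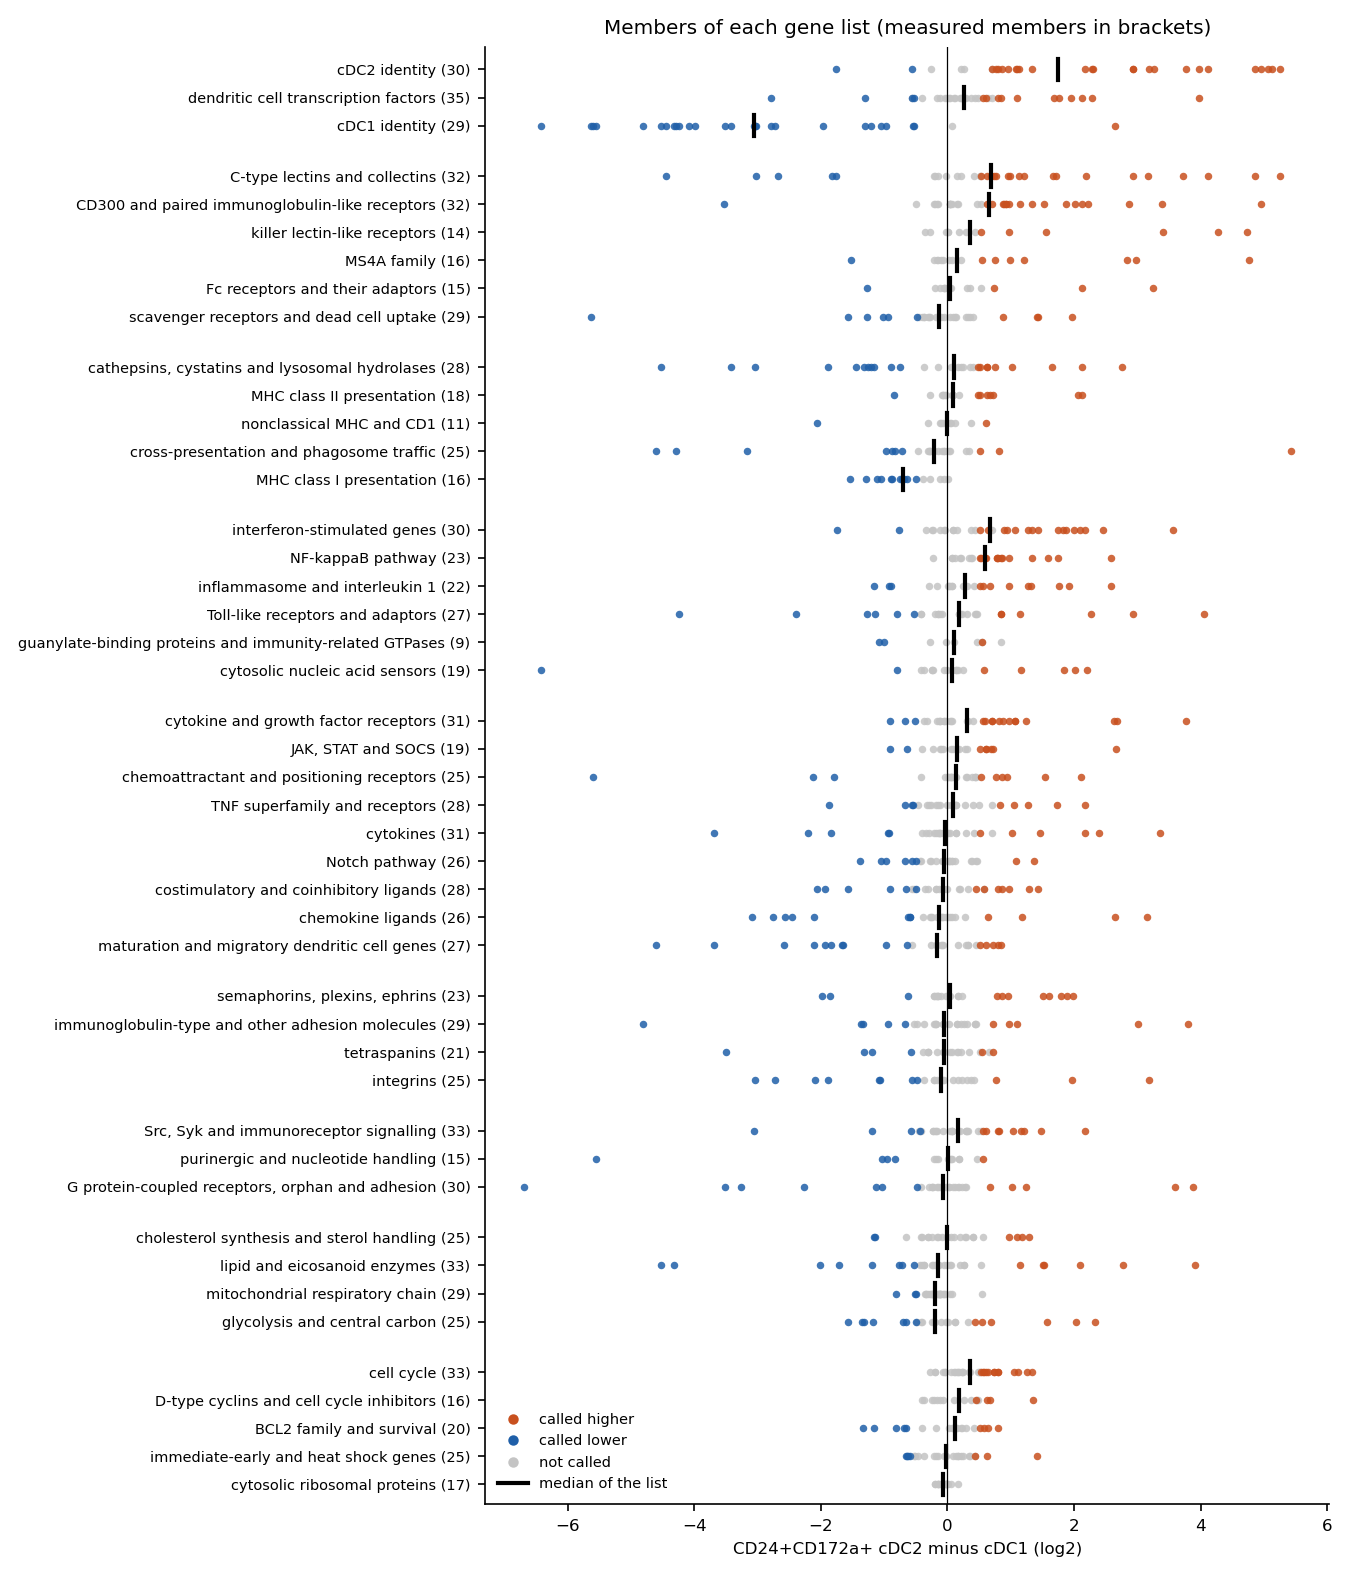
Difference between CD24+CD172a+ cDC2 and cDC1 (log2) of each measured member of 45 gene lists, 1 point per gene, with the list's median as a black bar and the number of measured members in brackets. Points of genes called higher are orange, called lower blue and not called grey. The medians of the cDC1 and cDC2 identity lists, -3.06 and 1.75, lie on opposite sides of 0, and none of the 17 ribosomal protein points is coloured.

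The lists of genes chosen as typical of cDC1 and of cDC2 followed the labels, with exceptions on both sides. Of 29 measured cDC1 identity genes, 27 were lower in CD24+CD172a+ cDC2, with a list median of -3.06, and of 30 cDC2 identity genes 24 were higher and 2 lower, with a median of 1.75. The 24 include Sirpa, whose protein the sort selected on, so that member is no finding. The lower count of the cDC2 list was 1 without any compared array but cDC1 array 1. Clec9a, the cDC1 receptor for actin exposed by dead cells, stood at 11.26 and 11.39 in the cDC1 arrays and 6.89 and 6.86 in the CD24+CD172a+ arrays (-4.45 ± 0.13, adjusted p = 1.1e-08). Tlr3, the sensor of double-stranded RNA, stood at 8.88 and 8.83 in the cDC1 arrays and 4.55 and 4.68 in the CD24+CD172a+ arrays (-4.24 ± 0.13, adjusted p = 1.48e-08). The integrin chain Itgae (CD103, -2.73), the lectin Ly75 (DEC-205, -3.03) and the palmitoyl thioesterase Ppt1 (-3.04) were lower as well. On the cDC2 side, Cd209a, a DC-SIGN family lectin, stood at 4.68 and 4.68 in the cDC1 arrays and 8.77 and 8.83 in the CD24+CD172a+ arrays (4.12 ± 0.12, adjusted p = 1.29e-08). The ion channel-like membrane proteins Tmem176a (3.26) and Tmem176b (2.94), the integrin chain Itgam (CD11b, 3.18) and Cd4 (2.3) were also higher.

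Some genes went against the list they had been placed on, and whether that placement is right was not tested. Xcl1, the ligand of XCR1, is on the cDC1 list, yet it stood at 6.1 and 6.41 in the cDC1 arrays and 8.93 and 8.9 in the CD24+CD172a+ arrays. It was thus higher in CD24+CD172a+ cDC2 by 2.65 ± 0.14 (adjusted p = 5.3e-07), while its receptor Xcr1 was lower. Clec12a, an inhibitory lectin on the cDC2 list, stood at 9.62 and 9.75 in the cDC1 arrays and 7.79 and 8.07 in the CD24+CD172a+ arrays, lower in both CD24+CD172a+ arrays (-1.75 ± 0.16, adjusted p = 2.34e-05). Cd8a, the classical surface marker of splenic cDC1, stood at 10.92 and 11.07 in the cDC1 arrays and 7.31 and 7.84 in the CD24+CD172a+ arrays and at 5.31 and 5.63 in the CD24-CD172a+ arrays. Its level in CD24+CD172a+ cDC2 lay between the others: it was below cDC1, with a difference of -3.42 ± 0.19 (adjusted p = 6.3e-07) and above CD24-CD172a+ cDC2 by 2.11 ± 0.19 (adjusted p = 0.000925). The cDC2 genes Esam (4.62 and 4.84 against 4.85 and 5.11, cDC1 against CD24+CD172a+), Epcam, Ccl17 and Klf4, and the cDC1 gene Ptprj, were not called, with differences of 0.25, 0.21, -0.26, 0.71 and 0.07. Snx22 (-0.54, and -0.31 with 16 added) was not called on leaving out cDC1 array 1 (adjusted p = 0.0532), cDC1 array 2 (adjusted p = 0.189), CD24+CD172a+ array 1 (adjusted p = 0.189) or CD24+CD172a+ array 2 (adjusted p = 0.0613). Ccr2 (0.76), a chemokine receptor, was not called on leaving out cDC1 array 1 (adjusted p = 0.051), cDC1 array 2 (adjusted p = 0.101) or CD24+CD172a+ array 1 (adjusted p = 0.142).

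Transcription factors known from dendritic cells differed in both directions. Of 35 measured, 11 were higher and 4 lower, with a median of 0.26. Irf8 stood at 8.49 and 8.99 in the cDC1 arrays and 5.72 and 6.17 in the CD24+CD172a+ arrays, lower in CD24+CD172a+ cDC2, with a difference of -2.79 ± 0.2 (adjusted p = 4.2e-06). Irf4 stood at 6.69 and 6.64 in the cDC1 arrays and 8.83 and 9.07 in the CD24+CD172a+ arrays, higher by 2.28 ± 0.13 (adjusted p = 1.11e-06). The 2 factors thus differed in opposite directions, each without overlap. Zeb2, a repressor of the cDC1 fate, stood at 3.84 and 4.16 in the cDC1 arrays and 7.97 and 7.96 in the CD24+CD172a+ arrays (3.97 ± 0.14, adjusted p = 3.23e-08). Id2, an inhibitor of E proteins, was lower (-1.31 ± 0.14, adjusted p = 7.53e-05), while Tcf4, the E protein that drives plasmacytoid dendritic cells, was higher (1.76 ± 0.13, adjusted p = 5.23e-06). Spib (2.12), Prdm1 (BLIMP-1, 1.96), Bhlhe40 (1.68), Tbx21 (T-bet, 1.09) and Bcl11a (0.84) were higher too.

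Batf3, the factor cDC1 are known to depend on, stood at 8.26 and 7.98 in the cDC1 arrays and 7.51 and 7.7 in the CD24+CD172a+ arrays, a small difference (-0.52 ± 0.15, adjusted p = 0.0397) that was not called on leaving out cDC1 array 1 (adjusted p = 0.275), CD24+CD172a+ array 1 (adjusted p = 0.236) or CD24+CD172a+ array 2 (adjusted p = 0.0825). Relb, an NF-kappaB subunit, was higher by 0.81 ± 0.15 but not called on leaving out cDC1 array 1 (adjusted p = 0.0529) or CD24+CD172a+ array 2 (adjusted p = 0.056). Rbpj, the nuclear partner of Notch, was lower, with a difference of -0.56 ± 0.13 but not called on leaving out cDC1 array 2 (adjusted p = 0.0919), CD24+CD172a+ array 1 (adjusted p = 0.0729) or CD24+CD172a+ array 2 (adjusted p = 0.0669). Stat5a (0.62) was not called on leaving out cDC1 array 1 (difference 0.41, adjusted p = 0.245), CD24+CD172a+ array 1 (adjusted p = 0.0868) or CD24+CD172a+ array 2 (adjusted p = 0.189). Runx3 (0.57) was not called on leaving out cDC1 array 1 (adjusted p = 0.103), cDC1 array 2 (adjusted p = 0.112) or CD24+CD172a+ array 2 (adjusted p = 0.186). The lower count of the list accordingly fell from 4 to 2 without CD24+CD172a+ array 1 and without CD24+CD172a+ array 2. General factors of dendritic cells were not called: Spi1 (PU.1) read 10.38 and 10.38 against 10.3 and 10.46, Zbtb46 6.69 and 6.96 against 6.94 and 7.13, Ikzf1 8.52 and 8.54 against 8.48 and 8.52 and Nfil3 10.45 and 10.44 against 10.68 and 10.61, in cDC1 against CD24+CD172a+ cDC2.

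C-type lectins bind carbohydrates and other ligands on microbes and on dying cells. Of 32 measured, 19 were higher and 5 lower in CD24+CD172a+ cDC2, with a median of 0.68. Clec4b1, an activating receptor of the Dectin-2 cluster, stood at 3.17 and 3.19 in the cDC1 arrays and 7.04 and 6.77 in the CD24+CD172a+ arrays (3.72 ± 0.15, adjusted p = 8.41e-08; 2.44 with 16 added). Clec4a2 (2.93) and Clec4a3 (3.17), inhibitory DCIR relatives, were higher, as was Clec7a (Dectin-1, the receptor for fungal beta-glucan, 2.19). Clec10a (1.14, and 0.56 with 16 added) and Mgl2 (0.95, and 0.39 with 16 added), which bind galactose-type sugars, were higher from low levels. Lower ones included Clec9a, Ly75, Clec12a and Cd207 (langerin, 7.71 and 7.31 in the cDC1 arrays and 5.02 and 4.66 in the CD24+CD172a+ arrays). Clec4a3, Clec7a and Cd207 were named after their values were seen.

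Killer lectin-like receptors, known from NK cells, were higher in 6 of 14 measured members and lower in 0. Klrd1 (CD94) stood at 6.95 and 6.73 in the cDC1 arrays and 11.57 and 11.58 in the CD24+CD172a+ arrays, a 26.6-fold difference (4.74 ± 0.14, adjusted p = 1.1e-08). Klra17 stood at 2.65 and 2.84 in the cDC1 arrays and 7.06 and 6.99 in the CD24+CD172a+ arrays (4.28 ± 0.13, adjusted p = 1.54e-08; 2.69 with 16 added), and Klri2 at 5.36 and 5.08 in the cDC1 arrays and 8.58 and 8.67 in the CD24+CD172a+ arrays (3.4 ± 0.16, adjusted p = 1.66e-07). Each of the 3 separated the populations without overlap, which was a condition of naming them. Klrb1f was higher by 1.56 (0.97 with 16 added). Klri1 (0.53) was not called on leaving out cDC1 array 1 (adjusted p = 0.178), cDC1 array 2 (adjusted p = 0.151), CD24+CD172a+ array 1 (adjusted p = 0.142) or CD24+CD172a+ array 2 (adjusted p = 0.203).

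Paired immunoglobulin-like receptors, which carry inhibitory or activating tails, were higher in 17 of 32 members and lower in 1. The 17 include Sirpa, whose protein the sort selected on. Siglecg, an inhibitory sialic acid receptor, stood at 5.09 and 5.37 in the cDC1 arrays and 8.57 and 8.67 in the CD24+CD172a+ arrays (3.39 ± 0.14, adjusted p = 8.41e-08). Cd33, also a siglec, stood at 4.35 and 4.33 in the cDC1 arrays and 7.23 and 7.18 in the CD24+CD172a+ arrays (2.86 ± 0.15, adjusted p = 4.98e-07). Cd300ld (2.22), Cd300a (1.33) and Cd22 (1.87) were higher. The single lower member was Treml4, which stood at 8.93 and 9.21 in the cDC1 arrays and 5.35 and 5.74 in the CD24+CD172a+ arrays (-3.53 ± 0.17, adjusted p = 3.09e-07). Of 16 MS4A membrane proteins, 7 were higher and 1 lower. Ms4a4c stood at 4.67 and 4.38 in the cDC1 arrays and 9.37 and 9.21 in the CD24+CD172a+ arrays (4.77 ± 0.17, adjusted p = 3.23e-08), and Ms4a6c (2.98), Ms4a6b (2.83) and Ms4a7 (0.98) were higher. Ms4a1, which encodes the B cell protein CD20, was lower (-1.52).

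Fc receptors, which bind antibodies, were mostly not called: of 15, 3 were higher and 1 lower. The signalling chain Fcer1g stood at 8.42 and 8.2 in the cDC1 arrays and 11.48 and 11.63 in the CD24+CD172a+ arrays, higher by 3.25 ± 0.14 (adjusted p = 1.22e-07), and Fcrl1 was higher by 2.12. Fcrla was lower (-1.28, and -0.85 with 16 added). The related adaptor Tyrobp (DAP12), named after its values were seen, read 11.96 and 11.94 against 12.3 and 12.33 and was not called (0.36 ± 0.12, adjusted p = 0.0857). Scavenger receptors and genes of dead cell uptake gave 4 higher and 6 lower of 29, with a median of -0.14. Beside Cd36, the lipid-binding protein Anxa1 was lower (-1.56), while the endocytic receptor Lrp1 (1.43), Cd93 (1.41) and the integrin chain Itgb3 (1.97) were higher.

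Cells show peptides from the cytosol on MHC class I, after cutting by the proteasome and transport by TAP. Of the 16 measured genes of MHC class I presentation, 11 were lower in CD24+CD172a+ cDC2 and 0 higher, with a median of -0.71. The heavy chain genes H2-K1, H2-D1, H2-Q6 and H2-T23 of the list were not measured, so these counts do not cover them. Tapbpl, a peptide editor related to tapasin, stood at 6.92 and 7.11 in the cDC1 arrays and 5.35 and 5.59 in the CD24+CD172a+ arrays (-1.54 ± 0.14, adjusted p = 2.72e-05). Pdia3 (ERp57, part of the loading complex) stood at 10.46 and 10.39 in the cDC1 arrays and 9.24 and 9.05 in the CD24+CD172a+ arrays (-1.28 ± 0.16, adjusted p = 0.000273). The transactivator Nlrc5 was lower in its brightest probe set (-1.1 ± 0.15, adjusted p = 0.00053), while the next brightest differed by -0.064 (not called) and the mean of all its probe sets by -0.73. The immunoproteasome subunit Psmb9 (-1.05 ± 0.17, adjusted p = 0.00204) and the peptide transporter subunit Tap2 (-0.89 ± 0.15, adjusted p = 0.00201) were lower too. The light chain B2m read 12.57 and 12.57 against 12.57 and 12.59 and did not pass (0.01 ± 0.12, adjusted p = 0.974). The lower count of this list was 7 without CD24+CD172a+ array 1 and 8 to 10 without each other array.

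MHC class II genes gave 7 higher and 1 lower of 18, with a median of 0.09. The core chains, named after their values were seen, were near the top of the array's range in both populations: H2-Aa read 12.27 and 12.32 against 12.36 and 12.41, H2-Ab1 12.61 and 12.65 against 12.62 and 12.57, H2-Eb1 12.48 and 12.48 against 12.49 and 12.61 and the invariant chain Cd74 12.51 and 12.47 against 12.49 and 12.45, cDC1 against CD24+CD172a+ cDC2. None of these 4 was called, and their levels may be compressed near the upper end of the scale. Nor was the transactivator Ciita (-0.07 ± 0.14, adjusted p = 0.841). Among the higher members were H2-Eb2 (7.1 and 7.16 in the cDC1 arrays and 9.17 and 9.2 in the CD24+CD172a+ arrays) and the endosomal enzymes Lgmn (asparagine endopeptidase, 2.12) and Ifi30 (a thiol reductase, 0.73). Lgmn stood at 7.75 and 7.57 in the cDC1 arrays and 9.63 and 9.93 in the CD24+CD172a+ arrays, with the populations well apart. Marchf1, the ubiquitin ligase that turns over MHC class II, was lower (-0.85). Rfx5 (0.67) was not called on leaving out cDC1 array 1 (adjusted p = 0.092), CD24+CD172a+ array 1 (adjusted p = 0.0718) or CD24+CD172a+ array 2 (adjusted p = 0.0554). The higher count fell from 7 to 4 without cDC1 array 1, cDC1 array 2 or CD24+CD172a+ array 1, and to 3 without CD24+CD172a+ array 2.

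Genes of cross-presentation and phagosome traffic gave 3 higher and 7 lower of 25. Rab7b, a GTPase of late endosomes, stood at 9.42 and 9.71 in the cDC1 arrays and 5.26 and 5.3 in the CD24+CD172a+ arrays (-4.29 ± 0.15, adjusted p = 2.61e-08). Mpeg1 (perforin-2, a pore-forming protein) stood at 11.18 and 11.13 in the cDC1 arrays and 8.05 and 7.93 in the CD24+CD172a+ arrays (-3.17 ± 0.14, adjusted p = 1.22e-07). Wdfy4, which cDC1 need for cross-presentation, was lower by a smaller amount (11.26 and 11.16 against 10.33 and 10.14, -0.98 ± 0.13, adjusted p = 0.000565). Cybb was the largest of the 3 higher members. The number higher was 1 without cDC1 array 1, cDC1 array 2 or CD24+CD172a+ array 2, and 2 without CD24+CD172a+ array 1. Of the nonclassical molecules, Cd1d1, which presents lipids, was lower (7.69 and 7.7 in the cDC1 arrays and 5.51 and 5.78 in the CD24+CD172a+ arrays, -2.05 ± 0.18, adjusted p = 2.07e-05). H60b (0.6) was not called on leaving out cDC1 array 1 (adjusted p = 0.113), cDC1 array 2 (adjusted p = 0.23) or CD24+CD172a+ array 1 (difference 0.32, adjusted p = 0.337).

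Lysosomal genes differed in both directions. Of 28 cathepsins, cystatins and hydrolases, 9 were higher and 11 lower. Of the lower members, Naaa stood at 10.56 and 10.84 in the cDC1 arrays and 6.16 and 6.19 in the CD24+CD172a+ arrays, the glucuronidase Gusb at 9.41 and 9.58 in the cDC1 arrays and 5.98 and 6.16 in the CD24+CD172a+ arrays, and Ppt1 at 12 and 12 in the cDC1 arrays and 8.89 and 9.04 in the CD24+CD172a+ arrays. In each of the 3, both CD24+CD172a+ arrays were lower, with a difference of -4.53 ± 0.15, -3.42 ± 0.14 and -3.04 ± 0.13. The sphingolipid activator precursor Psap (-1.88), the ceramidase Asah1 (-1.45), the protease Ctse (-1.21) and the protease inhibitor Cst3 (cystatin C, -1.25), named after their values were seen, were lower as well. Higher members included the protease Lgmn, the carboxypeptidase Ctsa (1.66, named after its value was seen) and the cystatin Cst7, which stood at 4.99 and 4.53 in the cDC1 arrays and 7.5 and 7.53 in the CD24+CD172a+ arrays (2.75 ± 0.16, adjusted p = 9.61e-07). The lower count stayed at 11 without any 1 compared array. The higher count was 4 without cDC1 array 1 and 3 without CD24+CD172a+ array 2, and 6 and 7 without cDC1 array 2 and CD24+CD172a+ array 1.

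**Figure D4:**
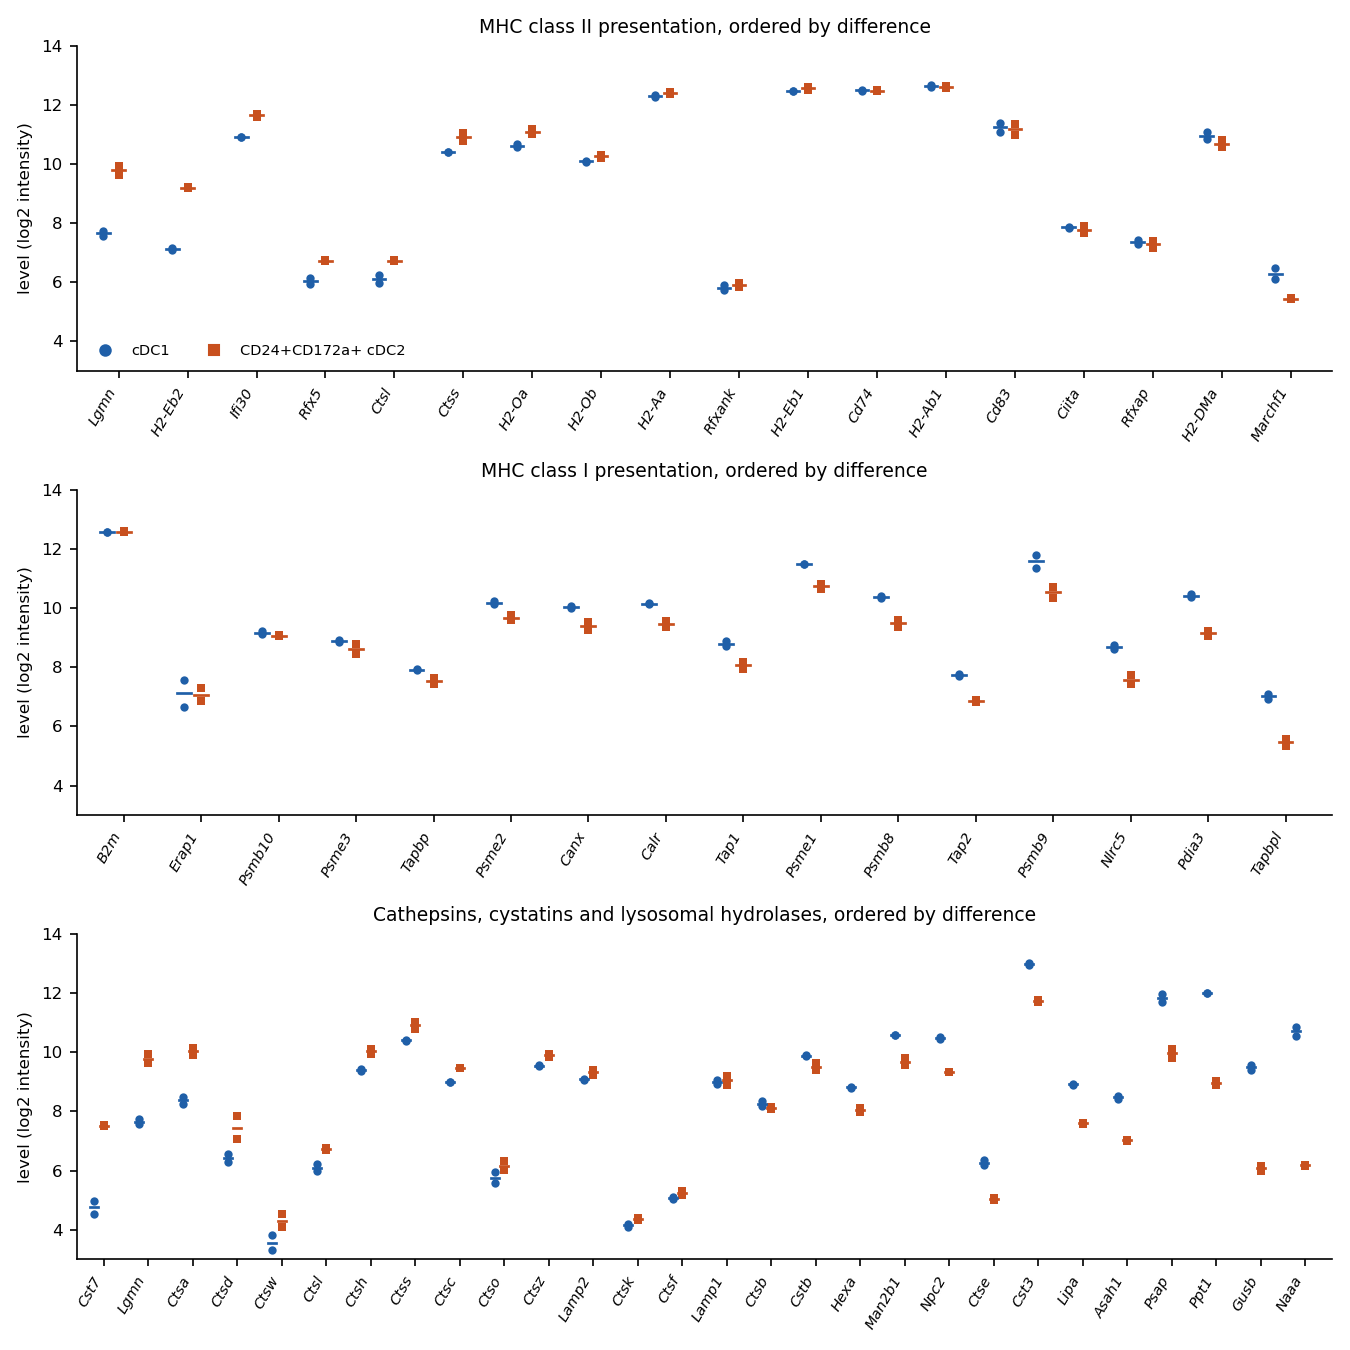
Level in each of the 4 compared arrays (log2 intensity) of the measured genes of MHC class II presentation (top), MHC class I presentation (middle) and cathepsins, cystatins and lysosomal hydrolases (bottom), each ordered by difference. Points are single arrays (blue cDC1, orange CD24+CD172a+ cDC2) and bars are means of 2. In the class I list 11 of 16 genes are lower in CD24+CD172a+ cDC2, while the points of H2-Aa, H2-Ab1, H2-Eb1 and Cd74 lie close together.

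Innate sensors were divided between the populations. Of 27 Toll-like receptors and adaptors, 6 were higher and 6 lower. Tlr7, the sensor of single-stranded RNA, stood at 3.15 and 2.88 in the cDC1 arrays and 6.82 and 7.31 in the CD24+CD172a+ arrays (4.05 ± 0.21, adjusted p = 5.29e-07). Tlr1, a partner of TLR2 for bacterial lipopeptides, stood at 5.08 and 4.86 in the cDC1 arrays and 7.89 and 7.9 in the CD24+CD172a+ arrays (2.93 ± 0.13, adjusted p = 1.57e-07), and the adaptor Ticam2 was higher (2.27 ± 0.26) with its cDC1 arrays apart at 4.79 and 3.76. In the other direction, Tlr3 and the profilin sensor Tlr12 were lower, the latter at 6.61 and 6.35 in the cDC1 arrays and 4.1 and 4.09 in the CD24+CD172a+ arrays (-2.38 ± 0.14, adjusted p = 8.62e-07). Lower calls numbered 4 without cDC1 array 2, 3 without CD24+CD172a+ array 2 and 5 without each other compared array. Among 19 cytosolic sensors of nucleic acid 5 were higher and 2 lower. Ddx58 (RIG-I) stood at 4.89 and 4.54 in the cDC1 arrays and 7.02 and 6.81 in the CD24+CD172a+ arrays (2.2 ± 0.16, adjusted p = 5.51e-06), Sting1 was higher by 1.16 and Ifi203 by 2.02, while Ifi205 and Ifi207 (-0.8) of the same Ifi200 family were lower.

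Inflammasome and interleukin 1 genes were higher in 9 of 22 and lower in 3, with a median of 0.28. Il1r2, the decoy receptor for interleukin 1, stood at 9.47 and 9.6 in the cDC1 arrays and 12.13 and 12.14 in the CD24+CD172a+ arrays (2.59 ± 0.13, adjusted p = 4.12e-07). The antagonist Il1rn stood at 6.26 and 6.59 in the cDC1 arrays and 8.18 and 8.21 in the CD24+CD172a+ arrays (1.77 ± 0.14, adjusted p = 1.12e-05). Both inhibitors of the pathway were thus higher, and so were the sensors Nlrc4 (1.92, and 1.17 with 16 added) and Nod1 (1.33) and the protease Casp1 (1.27).

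Interferon-stimulated genes were higher in 16 of 30 and lower in 2, with a median of 0.67. Rtp4 stood at 3.83 and 3.98 in the cDC1 arrays and 7.49 and 7.44 in the CD24+CD172a+ arrays (3.56 ± 0.13, adjusted p = 4.09e-08). The membrane proteins Ifitm6 (2.46) and Ifitm1 (2.0), Ifit3 (2.17) and the RNA-activated synthetase Oas1a (2.09) were higher. Mx1, an antiviral GTPase named after its values were seen, went the other way at 6.92 and 6.7 in the cDC1 arrays and 4.97 and 5.18 in the CD24+CD172a+ arrays (-1.74 ± 0.14, adjusted p = 1.12e-05), so the list did not move as 1 block. Of 9 guanylate-binding proteins and related GTPases, 1 was higher and 2 were lower: Gbp5 was lower, with a difference of -1.07 ± 0.18 (-0.68 with 16 added), and Gbp4 (-0.99) was not called on leaving out cDC1 array 2 (adjusted p = 0.0609) or CD24+CD172a+ array 1 (adjusted p = 0.0761). The higher count, 1 with all arrays (Gbp3), was 0 without cDC1 array 1 or CD24+CD172a+ array 1 and 3 without cDC1 array 2, and the lower count was 1 without cDC1 array 2 or CD24+CD172a+ array 1.

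The NF-kappaB pathway, which turns on inflammatory genes, was higher in 14 of 23 members and lower in 0, with a median of 0.59. Genes of the IkB family were among the higher members. Nfkbiz stood at 7.06 and 7.16 in the cDC1 arrays and 8.55 and 8.83 in the CD24+CD172a+ arrays (1.58 ± 0.15, adjusted p = 4.26e-05), Nfkbie at 7.91 and 8.11 in the cDC1 arrays and 9.2 and 9.48 in the CD24+CD172a+ arrays (1.33 ± 0.15, adjusted p = 0.000139), and Nfkbia (IkB-alpha) was higher by 0.97. In all 3 the CD24+CD172a+ arrays lay above both cDC1 arrays. Tnip3, a partner of the inhibitor A20, was higher by 1.74. Bcl3, an atypical IkB protein, stood at 5.48 and 5.71 in the cDC1 arrays and 8.09 and 8.27 in the CD24+CD172a+ arrays, the largest difference of the list (2.58 ± 0.17, adjusted p = 2.13e-06). Higher calls numbered 9 without CD24+CD172a+ array 2 and 10 to 12 without each other compared array.

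Chemokines marked the 2 populations with different ligands. Of 26 measured, 4 were higher and 8 lower in CD24+CD172a+ cDC2. Cxcl9, which attracts CXCR3-bearing T cells, stood at 12.23 and 12.33 in the cDC1 arrays and 9.1 and 9.29 in the CD24+CD172a+ arrays (-3.08 ± 0.13, adjusted p = 1.21e-07). Ccl2 stood at 9.31 and 9.03 in the cDC1 arrays and 6.43 and 6.39 in the CD24+CD172a+ arrays (-2.76 ± 0.15, adjusted p = 6.58e-07). Both were lower in CD24+CD172a+ cDC2, as were Cxcl2 (-2.56), Ccl22 (-2.1) and Ccl7 (-2.45, named after its value was seen). Higher ligands included Ccl9, which stood at 4.78 and 4.44 in the cDC1 arrays and 7.9 and 7.65 in the CD24+CD172a+ arrays (3.16 ± 0.17, adjusted p = 5.75e-07), Xcl1 and Ccl5 (1.18). The number lower was 5 without cDC1 array 2 and without CD24+CD172a+ array 1, and 6 without each other compared array. Among 25 receptors for chemoattractants 6 were higher and 3 lower. Gpr183 (EBI2), the oxysterol receptor that positions cDC2 in spleen, stood at 7.89 and 7.76 in the cDC1 arrays and 9.88 and 10 in the CD24+CD172a+ arrays (2.11 ± 0.13, adjusted p = 1.71e-06), and Ccr6 was higher by 1.54 (0.99 with 16 added). Cxcr3, the receptor for CXCL9, was lower (-2.12 ± 0.21, adjusted p = 4.78e-05) like its ligand, and Ccr9 was lower too (-1.79).

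Cytokine genes went in both directions, with 6 of 31 higher and 5 lower. Il12b, the p40 chain of interleukin 12 and interleukin 23, stood at 10.52 and 10.72 in the cDC1 arrays and 6.85 and 7.01 in the CD24+CD172a+ arrays (-3.69 ± 0.13, adjusted p = 3.63e-08). Lif stood at 6.99 and 6.65 in the cDC1 arrays and 4.73 and 4.5 in the CD24+CD172a+ arrays (-2.21 ± 0.17, adjusted p = 7.44e-06). Il15, named after its values were seen, was lower, with a difference of -1.84 ± 0.28 (adjusted p = 0.00117; -1.19 with 16 added), although its cDC1 arrays lay apart at 5.32 and 6.31. Those 3 were lower in both CD24+CD172a+ arrays. Higher were the angiogenic factor Vegfa, at 5.89 and 5.37 in the cDC1 arrays and 8.98 and 9.0 in the CD24+CD172a+ arrays (3.36 ± 0.17, adjusted p = 3.43e-07), Bmp2 (2.4) and lymphotoxin beta Ltb (2.17). Tnf read 8.45 and 8.66 against 8.86 and 9.67 and was not called (0.71 ± 0.23, adjusted p = 0.0735). This rests on single arrays: it was called higher without CD24+CD172a+ array 1 (1.11, adjusted p = 0.0076), and the difference was 0.31 without CD24+CD172a+ array 2.

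Receptors for cytokines and growth factors leaned to CD24+CD172a+ cDC2, with 13 of 31 higher and 3 lower. Csf1r, the receptor for CSF1, stood at 4.9 and 4.64 in the cDC1 arrays and 8.47 and 8.61 in the CD24+CD172a+ arrays (3.77 ± 0.14, adjusted p = 3.77e-08). Il21r stood at 6.7 and 6.85 in the cDC1 arrays and 9.49 and 9.42 in the CD24+CD172a+ arrays (2.68 ± 0.13, adjusted p = 2.22e-07), and Il7r at 4.84 and 4.52 in the cDC1 arrays and 7.52 and 7.11 in the CD24+CD172a+ arrays (2.63 ± 0.17, adjusted p = 1.98e-06). All 3 were clear of the cDC1 arrays. Both chains of the type 2 receptor for interleukins 4 and 13 were higher, Il4ra by 1.24 and Il13ra1 by 1.07. Flt3, the receptor that dendritic cells in general depend on, read 9.64 and 9.77 against 9.42 and 9.65 and was not called (-0.17 ± 0.14, adjusted p = 0.554; named after its values were seen). The lower count was 1 without cDC1 array 1, cDC1 array 2 or CD24+CD172a+ array 2, and 2 without CD24+CD172a+ array 1. Downstream of these receptors, 6 of 19 JAK, STAT and SOCS genes were higher and 2 lower. Stat4, which signals from the interleukin 12 receptor, stood at 7.12 and 7.29 in the cDC1 arrays and 10 and 9.74 in the CD24+CD172a+ arrays (2.67 ± 0.14, adjusted p = 4.98e-07), and Tyk2 was lower (-0.91).

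Other JAK, STAT and SOCS calls did not hold with 1 array left out, although such fits also hold less data. The difference of Stat5b, for instance, stayed at 0.72 without either cDC1 array and was 0.5 without CD24+CD172a+ array 1. Stat5b (0.72) was not called on leaving out cDC1 array 1 (adjusted p = 0.0598), cDC1 array 2 (adjusted p = 0.0566) or CD24+CD172a+ array 1 (adjusted p = 0.0946). Socs3 (0.69) was not called on leaving out cDC1 array 2 (adjusted p = 0.113) or CD24+CD172a+ array 2 (adjusted p = 0.142), nor Socs2 (-0.63) on leaving out cDC1 array 2 (adjusted p = 0.124), CD24+CD172a+ array 1 (adjusted p = 0.101) or CD24+CD172a+ array 2 (adjusted p = 0.0539). The higher count of the list was 3 without cDC1 array 1 or CD24+CD172a+ array 2 and 2 without cDC1 array 2 or CD24+CD172a+ array 1, and the lower count was 2 without cDC1 array 1 and 1 without each other compared array.

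Molecules through which dendritic cells and T cells signal to each other include the TNF superfamily, whose ligands and receptors gave 5 higher and 4 lower of 28. The 4 lower members were receptors, and 4 of the 5 higher ones were ligands. Tnfsf4 (OX40 ligand) stood at 4.17 and 4.94 in the cDC1 arrays and 6.16 and 6.42 in the CD24+CD172a+ arrays (1.74 ± 0.23, adjusted p = 0.000393), and Tnfsf9 (4-1BB ligand, 1.27) and Tnfrsf1b (TNF receptor 2, 1.05) were higher. The death receptor Tnfrsf21 was lower (-1.87). Lower calls numbered 1 without cDC1 array 1, 2 without cDC1 array 2 or CD24+CD172a+ array 1, and 4 without CD24+CD172a+ array 2. Of 28 costimulatory and coinhibitory molecules 7 were higher and 6 lower. Icosl stood at 7.37 and 7.57 in the cDC1 arrays and 8.78 and 9.02 in the CD24+CD172a+ arrays (1.43 ± 0.15, adjusted p = 8.39e-05) and Cd274 (PD-L1) at 7.93 and 8.18 in the cDC1 arrays and 9.36 and 9.33 in the CD24+CD172a+ arrays (1.29 ± 0.14, adjusted p = 0.000103). Btla, an inhibitory receptor, stood at 9.03 and 9.05 in the cDC1 arrays and 6.97 and 7.25 in the CD24+CD172a+ arrays (-1.93 ± 0.17, adjusted p = 2.28e-05). Members of the list thus lay on both sides, with Slamf8 (-1.56) on that of Btla. The B7 molecules Cd80 (10.32 and 10.24 against 10.65 and 10.54) and Cd86 (11.23 and 11.35 against 11.28 and 11.14), named after their values were seen, were not called. The number higher was 4 without CD24+CD172a+ array 2 and 5 or 6 without each other compared array.

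Genes that rise when dendritic cells mature and migrate gave 5 higher and 10 lower of 27, with a median of -0.17. Beside Il12b, Ccl22 and Apol7c, the lower members included Laptm4b (8.78 and 8.49 in the cDC1 arrays and 6.13 and 5.99 in the CD24+CD172a+ arrays, -2.58 ± 0.2, adjusted p = 8.27e-06) and Bcl2l14 (7.11 and 7.4 in the cDC1 arrays and 5.29 and 5.37 in the CD24+CD172a+ arrays, -1.93 ± 0.14, adjusted p = 4.85e-06). Ccr7, the receptor that guides migration to the T cell zone, read 10.26 and 10.63 against 10.64 and 10.83 and was not called (0.29 ± 0.15, adjusted p = 0.3; named after its values were seen). The number lower was 11 without cDC1 array 1 and 9 without each other compared array, while the higher count was 1 without cDC1 array 1 or CD24+CD172a+ array 2 and 4 without the others. The Notch pathway, which some splenic cDC2 need, gave 2 higher and 6 lower of 26. Dtx1, a target of Notch, was higher at 5.55 and 5.74 in the cDC1 arrays and 6.74 and 6.73 in the CD24+CD172a+ arrays (1.09 ± 0.15, adjusted p = 0.000608), and so was the coactivator Maml3 (1.37). Its relative Maml2 (-1.38; its other probe set differed by -0.45, not called, and the mean of both by -0.91) and Notch4 (-1.05) were lower, and Notch2 read 7.45 and 7.48 against 7.42 and 7.58, not called. Psen2 (-0.97) was not called on leaving out CD24+CD172a+ array 2 (adjusted p = 0.0506). The lower count of the Notch list was 2 without CD24+CD172a+ array 2 and 4 or 5 without each other compared array.

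Adhesion genes separated the populations by family member. Of 25 integrin genes, 3 were higher and 8 lower. Itgam stood at 4.67 and 3.97 in the cDC1 arrays and 7.54 and 7.47 in the CD24+CD172a+ arrays (3.18 ± 0.21, adjusted p = 2.22e-06). Itgae stood at 6.79 and 6.74 in the cDC1 arrays and 3.93 and 4.14 in the CD24+CD172a+ arrays (-2.73 ± 0.13, adjusted p = 2.86e-07), and Itga8 at 6.97 and 6.46 in the cDC1 arrays and 3.73 and 3.63 in the CD24+CD172a+ arrays (-3.03 ± 0.17, adjusted p = 8.16e-07). Each chain was clear of overlap, and Itga3 was lower, with a difference of -2.09. Itgax (CD11c), common to dendritic cells and named after its values were seen, read 9.85 and 9.84 against 10.52 and 10.72 and was higher by 0.77 ± 0.14 (adjusted p = 0.00289). Other adhesion molecules gave 5 higher and 5 lower of 29. Cadm1 stood at 10.12 and 10.31 in the cDC1 arrays and 5.17 and 5.63 in the CD24+CD172a+ arrays (-4.81 ± 0.17, adjusted p = 2.93e-08), Vcam1 (-1.37) and Jaml (-1.33) were lower, and Ceacam1 stood at 4.46 and 4.28 in the cDC1 arrays and 8.21 and 8.13 in the CD24+CD172a+ arrays (3.8 ± 0.14, adjusted p = 3.46e-08). Emb (embigin) was higher (3.01 ± 0.26), with cDC1 arrays at 6.42 and 5.41. The lower count was 3 without CD24+CD172a+ array 1 and 4 or 5 without each other compared array.

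Among tetraspanins, membrane organisers, 2 of 21 were higher and 4 lower. Cd81 stood at 11.6 and 11.74 in the cDC1 arrays and 8.21 and 8.14 in the CD24+CD172a+ arrays (-3.5 ± 0.13, adjusted p = 3.46e-08), and Cd9 (-1.19) and Tspan33 (-1.31) were lower. Tspan4 (-0.58) was not called on leaving out cDC1 array 1 (adjusted p = 0.0574), cDC1 array 2 (adjusted p = 0.0573), CD24+CD172a+ array 1 (adjusted p = 0.0521) or CD24+CD172a+ array 2 (adjusted p = 0.0641). Tspan14 (0.72) was not called on leaving out cDC1 array 1 (adjusted p = 0.105), cDC1 array 2 (adjusted p = 0.0683) or CD24+CD172a+ array 2 (adjusted p = 0.16). The higher count was 0 without cDC1 array 1 or cDC1 array 2, 2 without CD24+CD172a+ array 1 and 1 without CD24+CD172a+ array 2. Semaphorins, plexins and ephrins, guidance cues first known from axons, were higher in 8 of 23 members and lower in 3. Sema4d stood at 7.23 and 7.04 in the cDC1 arrays and 9.0 and 9.26 in the CD24+CD172a+ arrays (1.99 ± 0.14, adjusted p = 4.3e-06). Its other, dimmer probe set differed by 0.27 and was not called (adjusted p = 0.207), and the mean of both gave 1.13. The receptor Plxnd1 stood at 5.25 and 5.4 in the cDC1 arrays and 7.08 and 7.35 in the CD24+CD172a+ arrays (1.89 ± 0.14, adjusted p = 6.62e-06), and Efnb2 was higher by 1.79. Sema4a stood at 8.31 and 8.3 in the cDC1 arrays and 6.3 and 6.35 in the CD24+CD172a+ arrays (-1.98 ± 0.12, adjusted p = 1.74e-06). The class 4 semaphorins thus lay on both sides, with Sema4f lower as well (-1.85).

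Receptors coupled to G proteins, orphan and adhesion types, gave 5 higher and 7 lower of 30. Adgre4 stood at 3.5 and 3.23 in the cDC1 arrays and 7.19 and 7.29 in the CD24+CD172a+ arrays (3.88 ± 0.15, adjusted p = 4.58e-08), and its relative Adgre1 (F4/80) at 4.12 and 4.23 in the cDC1 arrays and 7.75 and 7.79 in the CD24+CD172a+ arrays (3.6 ± 0.16, adjusted p = 1.59e-07). These 2 adhesion receptors were both higher. Gpr33 stood at 7.43 and 7.29 in the cDC1 arrays and 3.8 and 3.89 in the CD24+CD172a+ arrays (-3.52 ± 0.14, adjusted p = 8.41e-08), and the lysophosphatidic acid receptor Lpar6 at 9.38 and 9.42 in the cDC1 arrays and 6.33 and 5.93 in the CD24+CD172a+ arrays (-3.26 ± 0.16, adjusted p = 3.47e-07). Gpr171, named after its values were seen, was lower too (-2.27). Purinergic genes gave 1 higher and 4 lower of 15. Beside P2ry14, the UDP receptor P2ry6 (-0.96) and the ectonucleotidase Entpd1 (CD39, -1.03) were lower. Adk (-0.83) was not called on leaving out cDC1 array 1 (adjusted p = 0.206), cDC1 array 2 (adjusted p = 0.0546), CD24+CD172a+ array 1 (adjusted p = 0.116) or CD24+CD172a+ array 2 (adjusted p = 0.184). P2ry10 (0.56), the single higher call, was not called on leaving out cDC1 array 1 (adjusted p = 0.0798), cDC1 array 2 (adjusted p = 0.183), CD24+CD172a+ array 1 (adjusted p = 0.0636) or CD24+CD172a+ array 2 (adjusted p = 0.213), so that the higher count was then 0.

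Kinases and adaptors of immunoreceptor signalling gave 9 higher and 4 lower of 33. The Src family kinase Fgr stood at 6.22 and 5.86 in the cDC1 arrays and 8.08 and 8.36 in the CD24+CD172a+ arrays (2.18 ± 0.16, adjusted p = 5.39e-06), and Syk, which couples lectin and Fc receptors, at 7.09 and 7.4 in the cDC1 arrays and 8.8 and 8.64 in the CD24+CD172a+ arrays (1.48 ± 0.15, adjusted p = 4.88e-05). Both kinases were higher, together with the phosphatase Ptpro (1.22). The adaptor Clnk stood at 6.94 and 6.64 in the cDC1 arrays and 3.86 and 3.6 in the CD24+CD172a+ arrays (-3.06 ± 0.16, adjusted p = 5.83e-07), and Sla was lower (-1.19). Lower calls numbered 2 without any 1 of the 4 compared arrays.

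Metabolic genes showed opposite signs within single pathways. Of 25 genes of glycolysis and central carbon use, 6 were higher and 7 lower. Of the glucose transporters, Slc2a3 stood at 5.91 and 5.43 in the cDC1 arrays and 7.88 and 8.13 in the CD24+CD172a+ arrays (2.33 ± 0.17, adjusted p = 5.91e-06), Slc2a6 at 5.93 and 5.82 in the cDC1 arrays and 7.76 and 8.04 in the CD24+CD172a+ arrays (2.03 ± 0.14, adjusted p = 4.39e-06) and Slc2a1 was higher by 1.57. All 3 were thus higher in CD24+CD172a+ cDC2. Enzymes lay on both sides. Of the lower ones, the phosphofructokinase Pfkp stood at 9.78 and 9.96 in the cDC1 arrays and 8.58 and 8.46 in the CD24+CD172a+ arrays (-1.35 ± 0.13, adjusted p = 4.55e-05), and Hk3 (-1.32) and Pgk1 (-1.18), named after their values were seen, were lower, as was the dehydrogenase Idh1 (-1.57). The other 3 higher members, named after their values were seen, were the enolase Eno3 (0.68), the lactate dehydrogenase subunit Ldhb (0.55) and the kinase Pdk3 (0.44). Eno3 was not called on leaving out cDC1 array 1 (difference 0.44, adjusted p = 0.171), CD24+CD172a+ array 1 (adjusted p = 0.0958) or CD24+CD172a+ array 2 (adjusted p = 0.114). Ldhb was not called on leaving out cDC1 array 2 (adjusted p = 0.226), CD24+CD172a+ array 1 (adjusted p = 0.0647) or CD24+CD172a+ array 2 (adjusted p = 0.215). Pdk3 was not called on leaving out cDC1 array 1 (adjusted p = 0.106), cDC1 array 2 (adjusted p = 0.241), CD24+CD172a+ array 1 (adjusted p = 0.171) or CD24+CD172a+ array 2 (adjusted p = 0.167). Higher calls numbered 3 without CD24+CD172a+ array 1 or 2 and 4 without either cDC1 array, and the lower count was 4 without CD24+CD172a+ array 1 and 5 or 6 without the others.

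Subunits of the mitochondrial respiratory chain gave 0 higher and 3 lower of 29, with a median of -0.19. Cycs, cytochrome c, stood at 10.79 and 10.73 in the cDC1 arrays and 10.01 and 9.9 in the CD24+CD172a+ arrays (-0.81 ± 0.13, adjusted p = 0.00159). Ndufa9 (-0.51) was not called on leaving out cDC1 array 1 (adjusted p = 0.148), cDC1 array 2 (adjusted p = 0.0559), CD24+CD172a+ array 1 (adjusted p = 0.12) or CD24+CD172a+ array 2 (adjusted p = 0.0777). Uqcrb (-0.5) was not called on leaving out cDC1 array 1 (adjusted p = 0.165), cDC1 array 2 (adjusted p = 0.0658), CD24+CD172a+ array 1 (adjusted p = 0.0744) or CD24+CD172a+ array 2 (adjusted p = 0.146). The number lower was therefore 1 without any 1 of the 4 arrays, and the higher count was 1 without cDC1 array 2. The share of 10.3% lower is near the 11.4% of all genes at or above the median level.

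Sterol genes gave 4 higher and 2 lower of 25. The 2 proteins that pass cholesterol out of lysosomes went in opposite directions: Npc1 stood at 6.4 and 6.27 in the cDC1 arrays and 7.49 and 7.75 in the CD24+CD172a+ arrays (1.28 ± 0.14, adjusted p = 0.000101) and Npc2 at 10.46 and 10.52 in the cDC1 arrays and 9.33 and 9.32 in the CD24+CD172a+ arrays (-1.17 ± 0.13, adjusted p = 0.000104). Of the synthesis enzymes, Pmvk was higher (1.18) and Fdps lower (-1.14). Lipid and eicosanoid enzymes gave 6 higher and 8 lower of 33. Ptgs2 (cyclooxygenase 2) stood at 6.71 and 7.02 in the cDC1 arrays and 10.6 and 10.94 in the CD24+CD172a+ arrays (3.91 ± 0.17, adjusted p = 1.21e-07). Lta4h, which makes leukotriene B4, stood at 6.6 and 6.2 in the cDC1 arrays and 8.53 and 8.46 in the CD24+CD172a+ arrays (2.1 ± 0.15, adjusted p = 4.98e-06). The fatty acid carrier Fabp5 (2.77) and the prostaglandin D synthase Hpgds (1.52) were higher too. The thromboxane synthase Tbxas1 (-2.01) and the lipid droplet protein Plin2 (-1.72) were lower, so that 2 of the enzymes that act after cyclooxygenase differed in opposite directions. Hpgds, Tbxas1 and Plin2 were named after their values were seen.

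Genes of cell division were higher in CD24+CD172a+ cDC2 in 13 of 33 members (39.4%) and lower in 0, with a median of 0.35. Nusap1, a spindle protein, stood at 5.65 and 5.94 in the cDC1 arrays and 6.9 and 7.36 in the CD24+CD172a+ arrays (1.34 ± 0.18, adjusted p = 0.000546). The checkpoint kinase Bub1 stood at 5.33 and 5.33 in the cDC1 arrays and 6.54 and 6.64 in the CD24+CD172a+ arrays (1.26 ± 0.13, adjusted p = 7.4e-05), and the topoisomerase Top2a at 7.63 and 7.65 in the cDC1 arrays and 8.68 and 8.7 in the CD24+CD172a+ arrays (1.05 ± 0.14, adjusted p = 0.000546). In all 3 the CD24+CD172a+ arrays were higher, by 2.07 to 2.52-fold. The motor Kif11 (1.12), the proliferation marker Mki67 (0.8) and the replication helicase subunit Mcm7 (0.74) were higher too, the last 2 named after their values were seen. Ccnb2, a mitotic cyclin, was higher by 0.81 but not called on leaving out CD24+CD172a+ array 2 (adjusted p = 0.0537). Pcna, the replication clamp, read 11.46 and 11.42 against 11.46 and 11.53 and was not called (0.05 ± 0.12, adjusted p = 0.871). The number higher was 10 without cDC1 array 1, 8 without cDC1 array 2, 13 without CD24+CD172a+ array 1 and 8 without CD24+CD172a+ array 2.

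Regulators of cell cycle entry were higher in 4 of 16 and lower in 0. Rb1, the retinoblastoma protein that restrains entry, was higher by 1.36 ± 0.14 (adjusted p = 9.12e-05). Smaller calls did not hold with 1 array left out, although such fits also hold less data. The difference of Cdk4, for instance, ran only from 0.41 to 0.51 in them. Ccnd2 (0.63) was not called on leaving out cDC1 array 1 (adjusted p = 0.0561) or CD24+CD172a+ array 2 (adjusted p = 0.0669). Rbl2 (0.68) was not called on leaving out cDC1 array 1 (adjusted p = 0.0534). Cdk4 (0.46) was not called on leaving out cDC1 array 1 (adjusted p = 0.0988), cDC1 array 2 (adjusted p = 0.19), CD24+CD172a+ array 1 (adjusted p = 0.109) or CD24+CD172a+ array 2 (adjusted p = 0.171). The higher count was 1 without cDC1 array 1, 2 without CD24+CD172a+ array 2 and 3 without each other array, and the lower count was 1 without CD24+CD172a+ array 2.

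Several precursors of the miR-17 cluster, microRNAs that are transcribed together and are known to promote growth and survival of lymphoid cells, were also higher. The cluster was looked up after its values were seen, and its member Mir92-1 was not measured. The probe sets report the precursor region, not the mature microRNA. One mature sequence of each measured precursor, the arm for which it is best known, is shown from RefSeq (GRCm38.p6, chromosome 14, plus strand, 115043684 to 115044380), with the seed, bases 2 to 8, in capitals.
miR-17-5p: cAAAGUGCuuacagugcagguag
miR-20a-5p: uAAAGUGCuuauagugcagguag
miR-18a-5p: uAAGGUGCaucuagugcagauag
miR-19a-3p: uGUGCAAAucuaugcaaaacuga
miR-19b-3p: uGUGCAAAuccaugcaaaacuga
miR-17-5p and miR-20a-5p share the seed AAAGUGC, miR-19a-3p and miR-19b-3p share GUGCAAA, and miR-18a-5p has AAGGUGC. Mir17 stood at 7.08 and 6.9 in the cDC1 arrays and 8.32 and 8.15 in the CD24+CD172a+ arrays (1.25 ± 0.17, adjusted p = 0.000639), and Mir18 at 6.93 and 6.55 in the cDC1 arrays and 8.17 and 8.03 in the CD24+CD172a+ arrays (1.36 ± 0.15, adjusted p = 0.00012). Mir19b-1 stood at 4.61 and 4.67 in the cDC1 arrays and 5.81 and 5.89 in the CD24+CD172a+ arrays (1.21 ± 0.13, adjusted p = 8.86e-05). These 3 were higher in both CD24+CD172a+ arrays, and by a similar amount. Mir20a stood at 5.18 and 4.94 in the cDC1 arrays and 5.65 and 6.63 in the CD24+CD172a+ arrays, with the CD24+CD172a+ arrays apart from each other (1.08 ± 0.26, adjusted p = 0.0179), and it was not called on leaving out cDC1 array 1 (adjusted p = 0.0511), cDC1 array 2 (adjusted p = 0.114) or CD24+CD172a+ array 2 (difference 0.59, adjusted p = 0.0991), nor with 16 added to the intensity (0.82, adjusted p = 0.0706). Mir19a lay near the bottom of the range (2.03 and 1.96 against 1.96 and 2.53) and was not called, and the host transcript Mir17hg read 4.23 and 4.2 against 4.59 and 4.71, also not called (0.44 ± 0.15, adjusted p = 0.0835). Of all 291 microRNA probe sets with a gene name, 10 were called higher and 1 lower.

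**Figure D5:**
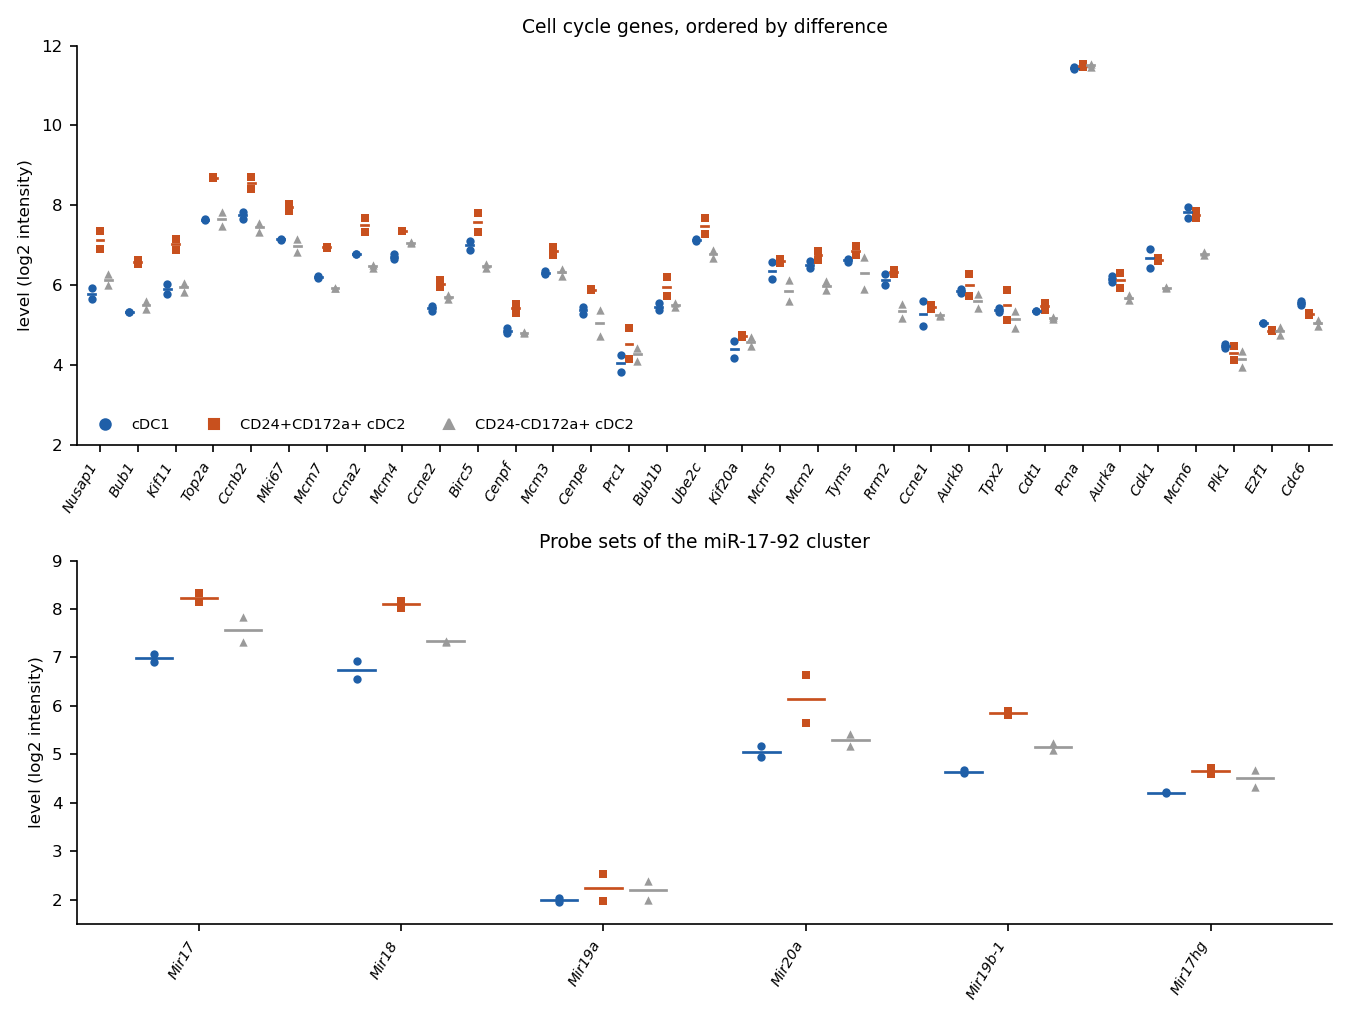
Level in each array (log2 intensity) of 33 cell cycle genes ordered by difference (top), and of the probe sets of the miR-17 cluster (bottom). Points are single arrays of each population, and bars are means of 2. Of the 33 cell cycle genes 13 were called higher, and of the 6 cluster probe sets 4, against 7.11% of all genes.

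Survival genes of the BCL2 family gave 4 higher and 5 lower of 20. Bcl2l1 (BCL-XL), a survival factor, stood at 6.99 and 6.67 in the cDC1 arrays and 5.51 and 5.48 in the CD24+CD172a+ arrays (-1.34 ± 0.15, adjusted p = 0.00011), and the effector protease Casp6 was lower (-1.16). The other named calls were smaller. Bad (-0.82) was not called on leaving out CD24+CD172a+ array 1 (adjusted p = 0.0524). Bid (-0.68) was not called on leaving out cDC1 array 1 (adjusted p = 0.0777) or CD24+CD172a+ array 2 (adjusted p = 0.0709). Birc2 (0.8) was not called on leaving out cDC1 array 1 (adjusted p = 0.101) or CD24+CD172a+ array 1 (adjusted p = 0.0907). Higher calls numbered 1 without cDC1 array 1, 2 without cDC1 array 2, 0 without CD24+CD172a+ array 1 and 3 without CD24+CD172a+ array 2, and the lower count was 3, 4, 3 and 4 in that order.

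Immediate-early and heat shock genes, which respond to handling and to stimulation of cells, gave 3 higher and 4 lower of 25 (12% and 16%, against 7.11% and 6.52% of all genes). Of the genes at or above the median level, 12.5% were called higher and 11.4% lower. Those shares are the closer background, since the list is bright, with a mean level of 9.11 and 9.24 in the cDC1 arrays. Jun stood at 9.27 and 9.25 in the cDC1 arrays and 10.51 and 10.83 in the CD24+CD172a+ arrays (1.41 ± 0.14, adjusted p = 5.66e-05). Ier2 (0.63) was not called on leaving out cDC1 array 1 (adjusted p = 0.081), cDC1 array 2 (adjusted p = 0.0861) or CD24+CD172a+ array 2 (adjusted p = 0.145). Ier3 (-0.62) was not called on leaving out cDC1 array 1 (adjusted p = 0.0665), cDC1 array 2 (adjusted p = 0.0507) or CD24+CD172a+ array 2 (adjusted p = 0.081). Dusp2 (-0.64) was not called on leaving out cDC1 array 1 (adjusted p = 0.0638) or CD24+CD172a+ array 1 (adjusted p = 0.0842). Egr3 (-0.66) was not called on leaving out cDC1 array 1 (adjusted p = 0.0879), cDC1 array 2 (adjusted p = 0.0892) or CD24+CD172a+ array 1 (difference -0.43, adjusted p = 0.157). The number higher was 3 without CD24+CD172a+ array 1 and 1 without each other compared array, and the lower count was 3 without CD24+CD172a+ array 2 and 1 without each other.

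Of 17 cytosolic ribosomal proteins 0 were called by limma in either direction, and 0 had an unadjusted p under 0.05, with a median difference of -0.07. The members with the smallest p, Rpl28 (12.94 and 13.01 against 12.74 and 12.82) and Rps3 (11.81 and 11.97 against 11.6 and 11.8), differed by -0.19 ± 0.12 and -0.19 ± 0.14 (adjusted p = 0.422 and 0.482). The brightest genes with a small difference between the populations were Rps29, Baiap2l1, Rplp1, Actb, Eef1a1, Rps28, Tmsb10, Rplp0, Rpl13 and S100a11. Actb, for instance, read 13.11 and 13.16 against 13.07 and 13.14, and Eef1a1 13.11 and 13.08 against 13.1 and 13.15. These lie at the top of the array's range, where a difference may be compressed.

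Markers of other cells were read in the same arrays, since a sort can carry neighbours along. Plasmacytoid dendritic cell markers gave 7 higher and 2 lower of 20, and their summed linear intensity was 1163 and 1143 in cDC1 against 1596 and 1690 in CD24+CD172a+ cDC2. Cd209d (1.67, and 0.98 with 16 added), the collagen receptor Lair1 (2.25), Spib and Tcf4 were among the higher ones, while Ccr9 was lower, and the lower count was 1 without any 1 of the compared arrays. Transitional dendritic cell markers, which share Cd7, Cd209a, Klra17 and Tcf4 with other lists, gave 8 higher and 0 lower of 11, with sums of 464.5 and 454.3 against 2590 and 2925, or 396.9 and 380.0 against 800.9 and 790.0 without Cd7 and Cd209a. Neutrophil markers gave 7 higher and 1 lower of 18, with sums of 1108 and 1198 against 5066 and 5105, most of it from Il1r2. S100a9 stood at 4.66 and 5.46 in the cDC1 arrays and 6.57 and 6.58 in the CD24+CD172a+ arrays (1.52 ± 0.22, adjusted p = 0.000714), and Csf3r was higher by 0.71. S100a8 (1.23) was not called on leaving out cDC1 array 1 (adjusted p = 0.0854), cDC1 array 2 (adjusted p = 0.0512) or CD24+CD172a+ array 1 (adjusted p = 0.148), nor Mmp9 (0.84, and 0.51 with 16 added) on leaving out cDC1 array 1 (difference 0.53, adjusted p = 0.137), CD24+CD172a+ array 1 (adjusted p = 0.0504) or CD24+CD172a+ array 2 (adjusted p = 0.141). The neutrophil markers Ngp (4.37 and 4.31 against 4.71 and 4.23), Mpo (5.05 and 4.66 against 4.43 and 4.67) and Ly6g (2.52 and 2.76 against 3.09 and 3.06) were not called. The neutrophil count was 4 without cDC1 array 1 and 5 without each other compared array, and its lower count was 0 without any array but cDC1 array 2. The part of these cells in the differences above was not tested.

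Monocyte and macrophage markers gave 3 higher and 6 lower of 24, with sums of 10250 and 10330 in cDC1 against 6912 and 8204. Hmox1, a heme-degrading enzyme, stood at 9.05 and 9.38 in the cDC1 arrays and 6.82 and 6.9 in the CD24+CD172a+ arrays (-2.36 ± 0.17, adjusted p = 4.86e-06), and Lyz1 at 8.83 and 8.66 in the cDC1 arrays and 7.12 and 7.13 in the CD24+CD172a+ arrays (-1.62 ± 0.15, adjusted p = 3.68e-05). Both were lower, whereas Csf1r and Adgre1 were higher. The complement genes C1qa (4.16 and 4.1 against 4.31 and 4.37) and C1qb (4.22 and 4.69 against 4.58 and 4.76) and the efferocytosis receptor Mertk (3.9 and 3.92 against 3.68 and 3.55) were not called. B cell markers gave 6 higher and 2 lower of 16, with sums of 715.0 and 697.9 against 850.6 and 921.7. The kinase Blk (1.16) was higher, and Bank1 (0.8) was not called on leaving out cDC1 array 1 (adjusted p = 0.0718), CD24+CD172a+ array 1 (adjusted p = 0.0539) or CD24+CD172a+ array 2 (adjusted p = 0.053). The defining B cell genes Pax5 (4.81 and 4.81 against 4.8 and 4.67), Ebf1 (3.2 and 3.13 against 3.07 and 3.06) and Cd79a (3.36 and 3.58 against 3.51 and 4.17) were not called. Their higher count was 3 without either cDC1 array or CD24+CD172a+ array 1, and 2 without CD24+CD172a+ array 2.

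T cell markers gave 1 higher of 15 (Il7r), with Cd3e at 5.46 and 5.42 against 5.23 and 5.36, and sums of 516.1 and 522.7 against 672.6 and 613.9. NK cell markers gave 1 higher of 14 (Ccl5), with Ncr1 at 3.96 and 3.84 against 3.73 and 3.32, and sums of 5645 and 6253 against 8841 and 9087. Most of these sums came from Tyrobp and Ccl5, without which they were 475.1 and 463.5 against 517.8 and 498.2. Erythroid and platelet markers gave 1 higher of 10 (Car2, 1.59), with sums of 217.5 and 225.6 against 266.2 and 246.9. Mast cell and basophil markers gave 2 higher of 12 (Kit, 0.71, and Hdc, 0.53), with sums of 974.9 and 1035 against 1490 and 1563, or 160.3 and 156.7 against 159.8 and 165.4 without Kit and Hdc. Hdc was not called on leaving out cDC1 array 1 (adjusted p = 0.22), cDC1 array 2 (adjusted p = 0.0639) or CD24+CD172a+ array 2 (adjusted p = 0.233). Stromal and endothelial markers gave 1 higher of 15 (Pecam1, 0.72), with sums of 444.0 and 440.1 against 489.4 and 475.3. Pecam1 was not called on leaving out cDC1 array 2 (adjusted p = 0.0537). The part of each of these cell types in the differences above was not tested.

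Finally, CD24+CD172a+ cDC2 were set against CD24-CD172a+ cDC2. This tests whether the 2 kinds of cDC2 differ from cDC1 by unequal amounts, not whether a difference is found in only 1 of them. In this comparison 291 genes passed, 1.46% of those tested, with 161 higher (0.808%) and 130 lower (0.652%). That count rests heavily on single arrays: it was 20 without CD24+CD172a+ array 1, 44 without CD24+CD172a+ array 2, 98 without CD24-CD172a+ array 1, 76 without CD24-CD172a+ array 2 and 187 without either cDC1 array. The cell cycle list gave 12 of 33 higher and 0 lower in CD24+CD172a+ cDC2, the most calls of the 56 lists, but each of its genes named above lost its call without at least 1 array. Monocyte and macrophage markers gave 0 higher and 9 lower of 24 and maturation genes 0 higher and 7 lower of 27. Among the genes named here, 8 held their call without any 1 of the 6 arrays: the sort marker Cd24a, Cd8a, Xcl1, Lyz1, Il12b, Cd81, Ccl7 and Ccl4. Xcl1 read 8.93 and 8.9 against 7.41 and 7.47 in CD24-CD172a+ cDC2, higher by 1.47 ± 0.14 (adjusted p = 0.00164). Lower were the lysozyme Lyz1 (7.12 and 7.13 against 8.98 and 9.37, -2.05 ± 0.15, adjusted p = 0.000489), Il12b (6.85 and 7.01 against 8.66 and 8.64, -1.72 ± 0.13, adjusted p = 0.000603) and Cd81 (8.21 and 8.14 against 9.75 and 9.75, -1.58 ± 0.13, adjusted p = 0.000603). Ccl7 was lower too, with a difference of -1.31 ± 0.12 (adjusted p = 0.00155). For Il12b, Cd81 and Ccl7 the CD24-CD172a+ arrays thus lay between cDC1 and CD24+CD172a+ cDC2, while for Lyz1 they lay above both cDC1 arrays (8.98 and 9.37 against 8.83 and 8.66).

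Several other genes separated the 2 kinds of cDC2 but not in every fit. Klra17 was higher by 1.22 ± 0.13 (adjusted p = 0.00319, and 0.058 without CD24+CD172a+ array 1), and Cd36 was lower, with a difference of -1.03 ± 0.13 (adjusted p = 0.00703, and 0.0912 without CD24+CD172a+ array 1). S100a9 was higher by 1.88 ± 0.22 (adjusted p = 0.00354), and was not called without CD24+CD172a+ array 1 (0.0653) or CD24+CD172a+ array 2 (0.0557). Tlr7, far above cDC1 in both, was lower in the CD24+ cDC2, with a difference of -1.39 ± 0.21 (adjusted p = 0.0141), and was not called without CD24+CD172a+ array 1 (0.152), CD24+CD172a+ array 2 (0.0532) or CD24-CD172a+ array 2 (0.076). Of the genes far from cDC1, some were not called between the 2 kinds of cDC2: Cybb differed between them by 0.2 ± 0.15 (adjusted p = 0.612), S100a4 by 0.04 ± 0.13 (0.921), Cd209a by 0.03 ± 0.12 (0.941), Gpr141b by 0.11 ± 0.25 (0.892) and Clec9a by -0.06 ± 0.13 (0.886). A p that misses the threshold does not show that these levels are equal.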

How the data were processed

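RNA of sorted splenic cells was amplified from small amounts and read on Affymetrix mouse gene arrays. Per the submitters' processing notes, the authors summarised probes with RMA in Affymetrix Expression Console (versions not given in the sources used here). The deposited intensity values are linear, and log2 was taken. Of 28853 probe sets, 21789 with 1 gene symbol were kept, the brightest probe set standing for each of 19938 genes. One limma model (version 3.58.1, R 4.3.3) was fitted to all 6 arrays, with Benjamini-Hochberg adjustment over all genes and a threshold of 0.05. In 10 simulations on these genes, with 200 changed genes, it recovered 84.6% of changes of 1 log2 unit and 6.73% of 0.5, and 5.4% of calls were false. The simulated spread followed the model's own assumptions, so the false share was largely set in advance. Far fewer genes changed than the 2718 called here, so the recovered shares need not hold for the data. The number of arrays limits the precision. Alternatives covered normalization, probe choice, filter, offset, variance model, replicate block and each array left out.

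Members and lists were chosen with earlier results of these data known. Genes were named by rank: the 20 largest called differences each way, leading called members of each list, bright genes of small difference, and all identity genes and transcription factors as needed. The 20 largest and the leading members also had to have arrays that did not overlap. In addition, the mean of their higher population had to lie above the median gene. Outside that rule, B2m, H2-Aa, H2-Ab1, H2-Eb1, Cd74, Ciita, Psap, Cst3, Ctsa, Asah1, Gpr171, Ccl7, Ccl4, Cnr2, Rcan1, Mx1, Clec7a, Cd207, Clec4a3, Ccr7, Cd80, Cd86, Flt3, Tyrobp, Pcna, Itgax, Il15, Mki67, Mcm7, Tnf, Hpgds, Tbxas1, Plin2, Hk3, Pgk1, C1qa, C1qb, Mertk, Adgre1, Cd3e, Ncr1, Pax5, Ebf1, Cd79a, Ly6g, Ngp, Mpo, Gbp3 and the miR-17 cluster were named after their values were seen. The result of 1 list is not reported here.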

Additional observations from a re-analysis of the deposited data

Results flagged for a closer look

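In 3 genes the 2 kinds of cDC2 differed from cDC1 in opposite directions, and the difference between them passed limma's test. Ccl4, a chemokine, read 10.79 and 10.68 in cDC1, 9.94 and 10.36 in CD24+CD172a+ cDC2 and 11.66 and 11.85 in CD24-CD172a+ cDC2. Its difference between the 2 cDC2 populations was -1.6 (adjusted p = 0.00232), called without any 1 of the 6 arrays. Its difference from cDC1 (-0.59, adjusted p = 0.034) was not called on leaving out cDC1 array 1 (adjusted p = 0.18), cDC1 array 2 (adjusted p = 0.094) or CD24+CD172a+ array 1 (difference -0.38, adjusted p = 0.259).

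Cnr2, the peripheral cannabinoid receptor, read 4.63 and 4.59 in cDC1, 4.04 and 4.08 in CD24+CD172a+ cDC2 and 5.3 and 5.12 in CD24-CD172a+ cDC2. Its difference between the cDC2 populations was -1.15 (adjusted p = 0.00354, and 0.058 without CD24+CD172a+ array 1), and that from cDC1 (-0.55, adjusted p = 0.0165) was not called on leaving out cDC1 array 1 (adjusted p = 0.099), cDC1 array 2 (adjusted p = 0.0692), CD24+CD172a+ array 1 (adjusted p = 0.0951) or CD24+CD172a+ array 2 (adjusted p = 0.0767). Rcan1, an inhibitor of calcineurin, read 8.2 and 7.96, 7.43 and 7.65 and 8.92 and 8.95 in the same order. Its difference between the cDC2 populations was -1.4 (adjusted p = 0.00244, and 0.0506 without CD24+CD172a+ array 1), and that from cDC1 (-0.54, adjusted p = 0.0285) was not called on leaving out cDC1 array 1 (adjusted p = 0.213), CD24+CD172a+ array 1 (adjusted p = 0.202) or CD24+CD172a+ array 2 (adjusted p = 0.0511).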

How the results depend on the processing

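Tested against a 1.5-fold change, 363 genes were higher, 352 lower and 8 called between the cDC2 populations. The last count was 437 among genes at or above the median level, 464 with an intensity trend and robust variance, and 187 with only the 4 cDC2 arrays. With 1 of the 6 arrays left out, higher calls ran from 908 to 1426, lower calls from 811 to 1343 and calls between the cDC2 populations from 20 to 187. The cause was not tested. Deviations of arrays with the same number correlated weakly between populations (0.084, 0.024 and 0.084). Such correlations over genes cannot show whether array numbers pair the samples, and the labels do not say. The replicate block gave 1546 higher, 1372 lower and 411 between cDC2 populations. Other settings kept 92.6% to 100% of the 2718 calls, and 0 were called in the other direction. Of 252 called named genes, 7 lost the call in these: Adk, H60b, Klri1, Rbpj, Socs2, Socs3 and Uqcrb. With the mean of all probe sets, differences moved to -0.91 for Maml2, -0.73 for Nlrc5 and 1.13 for Sema4d. Adding 16 to the intensity before log2 moved 14 genes named by the rule by more than 1.5 times, all towards 0 and all still called, most of all Mgl2 (0.95 to 0.39) and Clec10a (1.14 to 0.56). Background was not examined, so dim levels limit these values.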

Other observations

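Probe sets without a single gene symbol were left out of the comparison. Of 5443 with no symbol, 161 were called higher and 145 lower in CD24+CD172a+ cDC2 (5.62%), and of 1621 with several symbols 69 were higher and 42 lower (6.85%). Among the 21789 with 1 symbol 11.7% were called. The left-out sets were dimmer: 36.8% of those without a symbol and 33.7% of those with several lay below the 25th percentile of gene levels in all arrays, against 20.5% of those with 1 symbol. Large differences were still among them. The largest positive one was 6.69 in sets with several symbols and 2.9 in sets without a symbol, against 5.43 in sets with 1 symbol. The largest negative one was -2.21, -4.29 and -6.7 in the same order.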
